A study of Homo sapiens with 183 samples.

Results

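The 38 genes described here are the glucose carrier SLC2A1, the enzymes of glycolysis, the enzymes and carriers that handle pyruvate and lactate, a group of hypoxia-response genes and the HIF alpha subunits HIF1A and EPAS1. They were taken by gene symbol, and all 38 were found among the 19875 genes of the deposited tables. There were 183 RNA-seq libraries of human cancer cell lines: the classical pancreatic ductal adenocarcinoma (PDAC) lines AsPC-1 and SUIT-2, the basal-like PDAC lines T3M-4 and BxPC-3, the PDAC line CFPAC-1, and the T84 colorectal, A-375 melanoma, H1048 tuft-like lung and RH30 rhabdomyosarcoma lines. Knockouts used Cas9-expressing lines given a single guide RNA from the LRG2.1_Puro vector and collected at day 5, with sgRosa, a guide without a human target gene, as the control of the same line and experiment. The main groups were sgKLF5, in 8 comparisons over 5 lines, against the transcription factor KLF5; sgRUVBL1 and sgRUVBL2, in 9 comparisons over 4 lines, against the paired AAA+ ATPases RUVBL1 and RUVBL2; and sgCHD4 in AsPC-1, against a chromatin remodelling ATPase. Further AsPC-1, T3M-4, BxPC-3 or CFPAC-1 groups carried guides to the cell-cycle kinase CDK1, to the replication protein RPA3 or, in AsPC-1, to SERPINB5. In the inhibitor experiments, cells received CB-6644, an allosteric inhibitor of the RUVBL1/2 ATPase, or the solvent DMSO for 24 h. T84, A-375, H1048 and RH30 had 4 libraries in each arm. AsPC-1 and T3M-4 cells carried an empty vector (EV) or a cDNA of the CB-6644-resistant RUVBL1 A62T or RUVBL2 dF109, with 3 CB-6644 libraries and 1 DMSO library for each vector. The study used a pair of guides for each of KLF5, RUVBL1, RUVBL2 and the control, and describes biological replicates, but the labels name neither the guide nor the culture of a library. The p-values below therefore measure the spread between libraries, which in these knockout groups mixes guides and replicates and in the other groups may be technical.

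Glycolysis converts glucose to pyruvate in the cytosol, and lactate dehydrogenase then turns pyruvate to lactate, which monocarboxylate carriers export. Under low oxygen the HIF alpha subunits, which prolyl hydroxylases otherwise mark for destruction, pair with ARNT and bind DNA at hypoxia response elements with the core ACGTG or GCGTG. Their targets include many glycolytic genes, carbonic anhydrases, angiogenic factors and the prolyl hydroxylase EGLN3, and HIF alpha activity is set largely at the level of protein, which these data did not measure. Both pathways are prominent in pancreatic cancer, a tumour with poorly perfused tissue.

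Values are in TPM, transcript abundance scaled for length, which sums to the same total in every library, so depth is unknown and no counting interval can be given. Between 11292 and 14024 genes reached 1 TPM in a library, and the 38 genes together took 1.44% to 3.31% of all TPM. EPCAM, an epithelial marker, had a control median of 888 TPM in AsPC-1 and 1413 TPM in T84 against 0.280 TPM in A-375 and 0.0717 TPM in RH30. The classical marker TFF1 had a control median of 0.739 TPM in AsPC-1 and was listed at 0 in SUIT-2, although both lines are called classical, while HNF4A, another classical marker, had medians of 49.0 and 20.2 TPM there. RUVBL1 or RUVBL2 mRNA was below every sgRosa library in all 9 knockouts of these genes, by log2 fold changes of -1.87 to -1.14. KLF5 mRNA changed by -0.41 to 0.78 across the 8 sgKLF5 comparisons, was above every control in T3M-4 experiment 2 and below every control only in CFPAC-1, and CHD4 mRNA changed by 0.28, so these mRNA levels do not show a loss of the targeted gene. Cutting by Cas9 need not lower an mRNA. In AsPC-1 experiment 1, sgKLF5 replicate 6 listed LDHB at 26.3 TPM, where each of the other 7 libraries had at most 0.458 TPM. Of the 6395 genes under 0.5 TPM in those 7 libraries, 15 exceeded 5 TPM in replicate 6. Replicate 2 of sgKLF5 in T3M-4 experiment 1 and replicate 1 of sgRosa in SUIT-2 also stood apart from their groups, with correlations to some group mates as low as 0.953 and 0.967, and values without these 3 libraries are given beside the results of their comparisons.

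RefSeq promoter sequences (GRCh38.p14) were found for 35 of the 38 genes; VEGFA, NDRG1 and BNIP3L had no entry. Of the 35, 7 end at a start other than that of the MANE Select transcript (PFKM, PGAM1, P4HA2, GAPDH, PFKP, HK1 and GPI), and the 6 printed below end at it. The letters ACGTG, searched on both strands in the 250 bases before the start, were present in 17 of the 35 (48.6%) and in 18.5% of 35116 promoters of that length. The letters GCGTG were present in 13 (37.1%) against 32.2%, CACGTG, which contains ACGTG, in 6 (17.1%) against 6.34%, and the GC-box letters GGGCGG in 28 (80.0%) against 42.6%. The 35 were counted by gene, whereas the 35116 are all promoter entries and were not chosen by gene. The sets are therefore not alike, and these shares cannot show whether the letters are enriched in the members. A match is a description of the letters and not a site of HIF binding. The 6 sequences below are examples, and all 6 contain ACGTG. HK2, LDHA and PDK1 fell with CB-6644, ALDOC and ANKRD37 rose, and CA9 differed widely between lines. ACGTG was absent from the promoters of TPI1 and KDM3A, which rose in all 6 CB-6644 comparisons. It was also absent for PKM, ADM and EPAS1, which rose in most of them, and for HK1 and PFKM, which fell in most. Each is 5′ to 3′ on the strand of the gene and ends at the base before the start, and capitals mark ACGTG or its reverse complement CACGT.
HK2 (chr2:74833877-74834126, plus strand): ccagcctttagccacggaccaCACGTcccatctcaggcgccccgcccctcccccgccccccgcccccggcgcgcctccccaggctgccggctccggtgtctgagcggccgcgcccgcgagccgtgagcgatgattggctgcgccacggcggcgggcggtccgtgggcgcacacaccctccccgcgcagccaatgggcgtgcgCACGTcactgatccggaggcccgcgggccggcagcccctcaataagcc
LDHA (chr11:18394313-18394562, plus strand): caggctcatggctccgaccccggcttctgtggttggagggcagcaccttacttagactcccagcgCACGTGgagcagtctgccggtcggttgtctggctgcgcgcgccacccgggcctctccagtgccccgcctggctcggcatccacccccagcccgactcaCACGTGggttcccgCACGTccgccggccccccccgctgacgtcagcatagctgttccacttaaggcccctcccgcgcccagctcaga
PDK1 (chr2:172555840-172556089, plus strand): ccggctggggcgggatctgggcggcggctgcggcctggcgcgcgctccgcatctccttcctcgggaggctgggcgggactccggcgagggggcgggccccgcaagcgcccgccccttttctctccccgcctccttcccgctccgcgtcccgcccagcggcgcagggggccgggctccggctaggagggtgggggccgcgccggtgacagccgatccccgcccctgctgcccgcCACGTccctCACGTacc
ALDOC (chr17:28576896-28577145, minus strand): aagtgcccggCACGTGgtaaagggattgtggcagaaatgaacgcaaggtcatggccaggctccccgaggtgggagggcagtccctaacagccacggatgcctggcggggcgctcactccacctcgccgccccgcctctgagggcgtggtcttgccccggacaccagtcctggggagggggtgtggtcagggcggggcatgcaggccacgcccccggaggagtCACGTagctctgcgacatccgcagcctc
ANKRD37 (chr4:185396591-185396840, plus strand): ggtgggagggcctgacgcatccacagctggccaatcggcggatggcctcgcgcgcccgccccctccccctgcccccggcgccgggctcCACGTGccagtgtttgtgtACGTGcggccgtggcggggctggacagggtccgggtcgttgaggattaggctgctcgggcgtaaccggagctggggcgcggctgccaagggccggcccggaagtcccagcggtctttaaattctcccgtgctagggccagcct
CA9 (chr9:35673678-35673927, plus strand): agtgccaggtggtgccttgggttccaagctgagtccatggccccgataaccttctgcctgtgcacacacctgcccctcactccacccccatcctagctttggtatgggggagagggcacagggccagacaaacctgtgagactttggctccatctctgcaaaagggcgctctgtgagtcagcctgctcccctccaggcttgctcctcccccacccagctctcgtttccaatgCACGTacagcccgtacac

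Control levels were described first, over the sgRosa and DMSO libraries of each line (14 in AsPC-1, 6 each in T3M-4 and BxPC-3 and 4 in each other line, with the vector DMSO libraries of AsPC-1 and T3M-4 left out). The tables were made separately, so levels of different lines are set side by side without a test. GAPDH was the most abundant member in every line. GAPDH, which oxidises glyceraldehyde 3-phosphate, had line medians from 5266 TPM in AsPC-1 to 12850 TPM in A-375, and ENO1, the main enolase, from 1387 TPM in H1048 to 3879 TPM in A-375. PKM, pyruvate kinase, ran from 1100 TPM in H1048 to 3668 TPM in CFPAC-1, ALDOA, the aldolase of most tissues, from 1084 TPM in H1048 to 1766 TPM in T84, TPI1, triose phosphate isomerase, from 823 TPM in CFPAC-1 to 2259 TPM in T84, PGK1, which makes ATP, from 298 TPM in SUIT-2 to 1344 TPM in T84 and PGAM1, a mutase, from 325 TPM in SUIT-2 to 779 TPM in A-375. The upstream steps had line medians of at most 349.9 TPM. SLC2A1, the carrier of glucose into the cell, ran from 17.0 TPM in H1048 to 297 TPM in CFPAC-1, and the hexokinases HK1 and HK2, which trap glucose, from 7.54 TPM in T84 to 92.5 TPM in A-375 and from 14.4 TPM in AsPC-1 to 62.6 TPM in CFPAC-1. GPI, the isomerase after hexokinase, ran from 53.6 TPM in SUIT-2 to 288 TPM in T84. Among the phosphofructokinases, which commit sugar to glycolysis, PFKP ran from 80.9 TPM in RH30 to 349.9 TPM in CFPAC-1, PFKL from 41.2 TPM in A-375 to 113 TPM in SUIT-2 and PFKM from 41.4 TPM in CFPAC-1 to 94.2 TPM in H1048. The tissue-restricted isozymes ALDOC and ENO2 were lower, from 3.65 TPM in RH30 to 64.6 TPM in T3M-4 and from 4.15 TPM in BxPC-3 to 323 TPM in H1048. ENO2, the neuronal enolase, had its highest level in the lung line.

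Of the lactate dehydrogenase subunits, only LDHB separated AsPC-1 from the other lines. LDHA averaged 1979 to 2332 TPM in the AsPC-1 sgRosa groups and 2335 TPM in T84 in DMSO. LDHB, the subunit that favours pyruvate formation, was at a median of 0 TPM in AsPC-1 and from 1133 TPM in CFPAC-1 to 3162 TPM in RH30 elsewhere, whereas LDHA, the subunit that favours lactate, was from 638 TPM in BxPC-3 to 2348 TPM in T84. The lactate exporter SLC16A3 ran from 2.66 TPM in RH30 to 340.5 TPM in T3M-4. PDK1, which inhibits pyruvate dehydrogenase, ran from 4.66 TPM in BxPC-3 to 15.3 TPM in RH30, and the fructose 2,6-bisphosphate enzymes PFKFB3 and PFKFB4 from 15.8 TPM in BxPC-3 to 107 TPM in CFPAC-1 and from 1.16 TPM in AsPC-1 to 25.3 TPM in A-375. Several hypoxia-response genes differed widely between lines. CA9, a cell-surface carbonic anhydrase, had a median of 318 TPM in AsPC-1, 7.60 TPM in T84 and at most 0.959 TPM in the other 7 lines, and its relative CA12 ran from 0.0506 TPM in RH30 to 40.0 TPM in T84. The mitophagy receptor BNIP3 was at 0.353 TPM in AsPC-1 and 0 TPM in BxPC-3 against 18.3 TPM or more in the other 7, while its relative BNIP3L ran only from 14.8 TPM in T84 to 56.1 TPM in RH30. LOX, a collagen cross-linking oxidase, was at 232 TPM in H1048 and at most 4.23 TPM elsewhere. Of the secreted factors, VEGFA, the angiogenic factor, ran from 16.5 TPM in RH30 to 127 TPM in T3M-4, ADM, the vasodilator adrenomedullin, from 2.04 TPM in RH30 to 36.1 TPM in T84 and ANGPTL4, a lipoprotein lipase inhibitor, from 0.134 TPM in RH30 to 4.99 TPM in A-375. NDRG1, a stress-response protein, ran from 3.24 TPM in H1048 to 81.9 TPM in T3M-4, EGLN3, the HIF prolyl hydroxylase, from 0.477 TPM in A-375 to 83.5 TPM in RH30, ANKRD37, an ankyrin-repeat protein, from 1.63 TPM in AsPC-1 to 12.1 TPM in A-375 and KDM3A, a histone demethylase, from 11.5 TPM in H1048 to 43.7 TPM in RH30. The collagen prolyl hydroxylases P4HA1 and P4HA2 ran from 25.7 TPM in BxPC-3 to 64.3 TPM in CFPAC-1 and from 9.56 TPM in AsPC-1 to 53.7 TPM in CFPAC-1. HIF1A mRNA ran from 23.5 TPM in AsPC-1 to 542 TPM in CFPAC-1, and EPAS1 mRNA, which encodes HIF-2 alpha, from 1.25 TPM in A-375 to 51.0 TPM in T3M-4. In A-375, HIF1A was at 147 TPM and EPAS1 at 1.25 TPM.

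**Figure D1:**
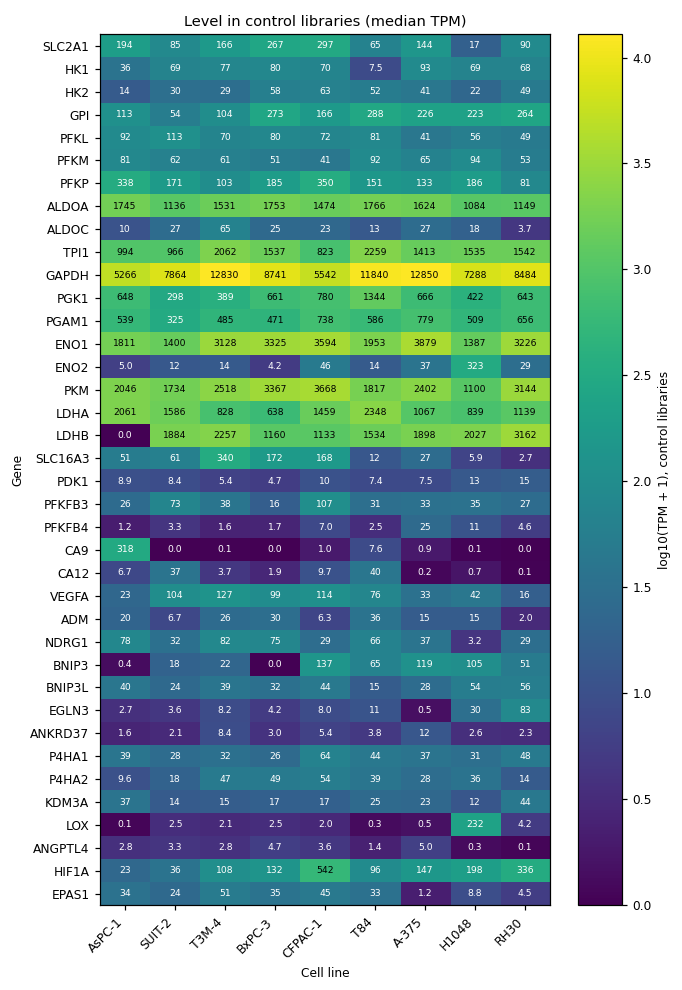
Median control level of each of the 38 genes (rows) in each of the 9 lines (columns), with the TPM value printed in each cell and log10(TPM + 1) as its colour. AsPC-1 stands out with LDHB at 0 TPM and CA9 at 318 TPM, and H1048 with LOX at 232 TPM and ENO2 at 323 TPM.

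Levels also differed between experiments of one line. CA9 in the sgRosa libraries of AsPC-1 was at 156 ± 9.52 TPM (SD, n = 2) in experiment 1, 167 ± 15.6 TPM (SD, n = 4) in experiment 2 and 474 ± 33.6 TPM (SD, n = 4) in experiment 3. ADM there was at 31.8 ± 0.577 TPM (SD, n = 2) in experiment 1 and 5.68 ± 0.864 TPM (SD, n = 4) in experiment 3, and NDRG1 at 73.9 ± 1.05 TPM (SD, n = 2) and 183 ± 8.67 TPM (SD, n = 4). For this reason, each treated group was compared with the controls of its own experiment only.

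The first question was which of the 38 genes moved when KLF5 was targeted. SLC2A1, PKM and NDRG1 fell, and ADM, LOX and ANGPTL4 rose, in at least 4 of the sgKLF5 comparisons each. CA12 rose in both AsPC-1 experiments. It fell in both T3M-4 experiments and in BxPC-3 experiment 1, but not in BxPC-3 experiment 2, and the difference between the lines was not tested. All changes below are log2 fold changes on the log2(TPM + 1) scale from limma, which understates changes of low genes, and "rose" or "fell" means a Benjamini-Hochberg adjusted p under 0.05 over all genes tested, which are those averaging 1 TPM or more across the libraries fitted. A call is marked "unstable" where leaving out any 1 of several libraries ends it, with the library named where only 1 does so, and "scale-dependent" where it did not hold or changed direction after the libraries were rescaled by the median of ratios, which sets the typical gene to no change. In AsPC-1 experiment 1, 11 rose and 4 fell of 36 tested, where 17.1% and 8.81% of all genes tested did. Without sgKLF5 replicate 6, 15 of 35 were called, with LDHB below the filter. The share of all genes called in that fit is not given here. In experiment 3, 12 rose and 5 fell of 35 tested, where 15.4% and 12.3% of all genes tested did. In SUIT-2, 4 rose and 0 fell of 37 tested, where 2.94% and 1.0% of all genes tested did, or 3 and 1, against 3.9% and 2.66% of all genes, after rescaling. Without sgRosa replicate 1, 16 (all genes 9.82%) were called. In T3M-4 experiment 1, 2 rose and 1 fell of 37 tested, where 3.26% and 2.46% of all genes tested did, or 5 and 4, against 9.45% and 10.5% of all genes, after rescaling. Members called there with 1 library left out, with the share of all genes called in brackets, were 1 without sgKLF5 replicate 1 (1.97%), 13 without sgKLF5 replicate 2 (37.0%), 1 without sgKLF5 replicate 3 (2.98%), 1 without sgKLF5 replicate 4 (3.46%), 0 without sgRosa replicate 1 (0.641%) and 0 without sgRosa replicate 2 (0.656%). In experiment 2 of T3M-4, 18 rose and 3 fell of 37 tested, where 23.4% and 11.2% of all genes tested did. In BxPC-3 experiment 1, 3 rose and 9 fell of 36 tested, where 8.09% and 8.1% of all genes tested did, or 6 and 7, against 9.02% and 9.33% of all genes, after rescaling, and in experiment 2, 15 rose and 7 fell of 36 tested, where 21.0% and 13.6% of all genes tested did, or 10 and 8, against 18.2% and 18.3% of all genes, after rescaling. In CFPAC-1, 2 rose and 4 fell of 38 tested, where 3.26% and 13.0% of all genes tested did, or 8 and 1, against 8.45% and 6.91% of all genes, after rescaling. The CFPAC-1 count rested on single libraries, being 1 without sgKLF5 replicate 1 (5.64%), 1 without sgKLF5 replicate 2 (6.4%), 2 without sgKLF5 replicate 3 (8.36%), 1 without sgRosa replicate 1 (5.97%), 15 without sgRosa replicate 2 (21.2%) and 2 without sgRosa replicate 3 (6.24%). In these bulk cultures, a change in all cells and a change in the share of cells expressing a gene cannot be told apart.

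The median log2 fold change of the members stood near that of all genes in most of these comparisons. It was 0.09 against 0.08 for all genes in AsPC-1 experiment 1, 0.13 against 0.02 for all genes in AsPC-1 experiment 3, 0.24 against 0.18 for all genes in SUIT-2 and -0.16 against -0.22 for all genes in T3M-4 experiment 1. The corresponding medians were 0.24 against 0.10 for all genes in T3M-4 experiment 2, -0.04 against -0.02 for all genes and 0.11 against 0.05 for all genes in BxPC-3 experiments 1 and 2, and 0.01 against -0.11 for all genes in CFPAC-1. The share of members called was close to that of all genes in T3M-4 experiment 1 and CFPAC-1 and higher in the other comparisons. Whether the shares differ was not tested. Single genes moved both ways.

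SLC2A1 had the largest fall among the members in AsPC-1. In experiment 1 its sgRosa libraries held 305 and 274 TPM and its sgKLF5 libraries 76.2 to 94.7 TPM over 6 libraries (median 85.3) (log2 fold change -1.75, standard error 0.09, adjusted p = 7.1e-07). In experiment 3 it was at 195, 201, 212 and 199.9 TPM with sgRosa and 48.4, 66.7, 85.7 and 78.2 TPM with sgKLF5 (log2 fold change -1.55, standard error 0.12, adjusted p = 1.39e-08). The sgKLF5 libraries all lay under the sgRosa libraries in both experiments. SLC2A1 fell in BxPC-3 experiment 1 (-0.71), BxPC-3 experiment 2 (-0.61) and CFPAC-1 (-0.33). The SLC2A1 values that did not pass were those of SUIT-2 (0.29), T3M-4 experiment 1 (-0.56) and T3M-4 experiment 2 (0.03). PKM, which makes the last ATP of glycolysis, was at 2381 and 2272 TPM with sgRosa and 1155 to 1229 TPM over 6 libraries (median 1190) with sgKLF5 in AsPC-1 experiment 1, without overlap. PKM fell in AsPC-1 experiment 1 (-0.97), AsPC-1 experiment 3 (-0.81), BxPC-3 experiment 1 (-0.47) and CFPAC-1 (-0.30, unstable, scale-dependent). The 4 remaining PKM values ran from -0.30 to 0.14 and did not pass. NDRG1 was the member with the largest fall in BxPC-3 experiment 1, from 64.7 and 66.8 TPM with sgRosa to 25.8, 24.4, 23.1 and 23.5 TPM with sgKLF5, and the groups did not overlap. NDRG1 fell in AsPC-1 experiment 1 (-0.52), AsPC-1 experiment 3 (-0.92), BxPC-3 experiment 1 (-1.41) and BxPC-3 experiment 2 (-0.78). The NDRG1 values that did not pass were those of SUIT-2 (-0.49), T3M-4 experiment 1 (-1.18), T3M-4 experiment 2 (-0.19) and CFPAC-1 (0.08). Without sgKLF5 replicate 2, NDRG1 in T3M-4 experiment 1 was at -0.94 (adjusted p = 0.000253 by limma).

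The lactate carrier SLC16A3 moved in opposite directions in AsPC-1 and T3M-4. SLC16A3 rose in T3M-4 experiment 1 (0.70, unstable) and T3M-4 experiment 2 (0.69) and fell in AsPC-1 experiment 1 (-0.92), AsPC-1 experiment 3 (-0.85) and BxPC-3 experiment 1 (-0.32, unstable, scale-dependent). The SLC16A3 values that did not pass were those of SUIT-2 (0.45), BxPC-3 experiment 2 (0.08) and CFPAC-1 (-0.10). In AsPC-1 experiment 1 it was at 59.3 and 67.5 TPM with sgRosa and 29.0 to 35.4 TPM over 6 libraries (median 33.9) with sgKLF5, and in T3M-4 experiment 2 at 356, 392, 407 and 325 TPM and 632, 612, 565 and 567 TPM. The groups were apart in both, with the sgKLF5 libraries lower in AsPC-1 and higher in T3M-4. The difference between the lines was not tested. LDHA, the lactate-forming subunit, showed small changes of both signs. LDHA rose in T3M-4 experiment 2 (0.43) and BxPC-3 experiment 2 (0.52) and fell in AsPC-1 experiment 3 (-0.28). The LDHA values that did not pass were those of AsPC-1 experiment 1 (-0.14), SUIT-2 (-0.24), T3M-4 experiment 1 (-0.32), BxPC-3 experiment 1 (-0.09) and CFPAC-1 (-0.04). PGK1 moved less still. PGK1 rose in T3M-4 experiment 2 (0.20, scale-dependent) and BxPC-3 experiment 2 (0.22, scale-dependent). The PGK1 values that did not pass were those of AsPC-1 experiment 1 (0.05), AsPC-1 experiment 3 (-0.10), SUIT-2 (0.06), T3M-4 experiment 1 (-0.45), BxPC-3 experiment 1 (-0.05) and CFPAC-1 (-0.01). GAPDH, GPI and PDK1 passed in none of the 8 comparisons, with values of -0.14 to 0.34 for GAPDH, -0.05 to 0.34 for GPI and -0.81 to 0.23 for PDK1.

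The carbonic anhydrases were the largest risers in AsPC-1 experiment 1. CA12 was at 3.13 and 2.05 TPM with sgRosa and 15 to 20.8 TPM over 6 libraries (median 17.6) with sgKLF5 (log2 fold change 2.39, standard error 0.16, adjusted p = 2.85e-06), and in experiment 3 at 10.4, 11.7, 11.2 and 10.3 TPM and 26.1, 31.9, 32.4 and 26.9 TPM (log2 fold change 1.34, standard error 0.10, adjusted p = 5.14e-09). All sgKLF5 libraries were above all sgRosa libraries in both. In T3M-4 experiment 1, CA12 was at 13.2 and 12.3 TPM with sgRosa and 2.68, 0.881, 2.50 and 2.38 TPM with sgKLF5, below every control (log2 fold change -2.19, standard error 0.33, adjusted p = 0.00968, unstable; -1.97 without sgKLF5 replicate 2). CA12 fell in T3M-4 experiment 2 (-0.49) and BxPC-3 experiment 1 (-1.06). The CA12 values that did not pass were those of SUIT-2 (-0.08), BxPC-3 experiment 2 (0.12) and CFPAC-1 (0.31). CA9 in AsPC-1 experiment 1 was at 163 and 149.5 TPM with sgRosa and 544 to 641 TPM over 6 libraries (median 576) with sgKLF5, a group clear of the controls. CA9 rose in AsPC-1 experiment 1 (1.90) and AsPC-1 experiment 3 (0.87). The CA9 value did not pass in CFPAC-1 (0.25). CA9 was below the filter in SUIT-2, T3M-4 experiment 1, T3M-4 experiment 2, BxPC-3 experiment 1 and BxPC-3 experiment 2. VEGFA rose where CA9 did and fell in a basal-like line. VEGFA rose in AsPC-1 experiment 1 (0.88) and AsPC-1 experiment 3 (0.37) and fell in BxPC-3 experiment 1 (-0.70). The VEGFA values that did not pass were those of SUIT-2 (-0.08), T3M-4 experiment 1 (-1.15), T3M-4 experiment 2 (-0.20), BxPC-3 experiment 2 (-0.02) and CFPAC-1 (-0.07). Without sgKLF5 replicate 2, VEGFA in T3M-4 experiment 1 was at -0.76 (adjusted p = 0.00287 by limma).

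ADM and ANGPTL4 each rose in 5 of the 8 comparisons. In BxPC-3 experiment 1, ADM was at 30.6 and 27.2 TPM with sgRosa and 160.0, 168, 154 and 177 TPM with sgKLF5 (log2 fold change 2.47, standard error 0.09, adjusted p = 4.07e-07). In BxPC-3 experiment 2, ADM was at 28.7, 28.5, 32.4 and 30.8 TPM and 88.6, 78.3, 86.6 and 83.2 TPM, and in T3M-4 experiment 2 at 25.4, 25.5, 26.3 and 22.5 TPM and 63.3, 64.8, 68.5 and 73.9 TPM. The sgKLF5 libraries exceeded every control in these 3 comparisons. ADM rose in AsPC-1 experiment 3 (1.19), SUIT-2 (1.48), T3M-4 experiment 2 (1.41), BxPC-3 experiment 1 (2.47) and BxPC-3 experiment 2 (1.45). The ADM values that did not pass were those of AsPC-1 experiment 1 (0.22), T3M-4 experiment 1 (0.52) and CFPAC-1 (0.39). LOX, which stiffens collagen outside the cell, was low in the controls of these lines. In SUIT-2 it was at 2.00, 3.04, 2.4 and 2.56 TPM with sgRosa and 18.1, 15.6, 15.5 and 8.61 TPM with sgKLF5 (log2 fold change 2.1, standard error 0.25, adjusted p = 0.00213). LOX rose in SUIT-2 (2.1), T3M-4 experiment 2 (1.29), BxPC-3 experiment 1 (1.90) and BxPC-3 experiment 2 (0.69). The 2 remaining LOX values ran from 0.05 to 0.38 and did not pass. LOX was below the filter in AsPC-1 experiment 1 and AsPC-1 experiment 3. ANGPTL4 was likewise low in the controls. ANGPTL4 rose in AsPC-1 experiment 1 (0.56, lost without sgRosa replicate 1), SUIT-2 (1.11, unstable, scale-dependent), T3M-4 experiment 2 (0.70), BxPC-3 experiment 1 (1.32) and BxPC-3 experiment 2 (0.94). The 3 remaining ANGPTL4 values ran from -0.28 to 0.48 and did not pass. The SUIT-2 call of ANGPTL4 had an adjusted p of 0.0428 by limma, close to the threshold. Without sgRosa replicate 1, the SUIT-2 values were 1.34 for ADM, 2.03 for LOX, 1.3 for BNIP3 and 1.03 for ANGPTL4, all still past the threshold, and NDRG1 (-0.70) and PKM (-0.51) passed as well. Without sgKLF5 replicate 2, ADM in T3M-4 experiment 1 was at 0.72 (adjusted p = 0.00247 by limma).

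The remaining large changes were held by a few lines. BNIP3 was at 13.7, 17.8, 21.8 and 18.7 TPM with sgRosa and 51.4, 52.0, 49.2 and 44.4 TPM with sgKLF5 in SUIT-2 (log2 fold change 1.42, standard error 0.17, adjusted p = 0.00239), and it rose by 0.82 in T3M-4 experiment 2. P4HA2 rose in AsPC-1 experiments 1 and 3 by 0.91 and 1.08, in both cases with all sgKLF5 libraries above the controls. ALDOC and HK2 fell in BxPC-3 experiment 2, by 0.98 and 0.68 on the log2 scale. PFKFB4 fell by 0.81 in BxPC-3 experiment 1 (unstable) and rose by 0.52 in experiment 2. ALDOA rose by 0.54 in T3M-4 experiment 1 (unstable, scale-dependent), and the largest falls in T3M-4 experiment 2 after CA12 were LDHB (-0.30) and PFKM (-0.27, unstable). In CFPAC-1 the changes were small: ENO1 (0.25, unstable) and TPI1 (0.15, unstable) rose, and HK2 (-0.34, unstable, scale-dependent), BNIP3L (-0.34, unstable, scale-dependent) and SLC2A1 (-0.33) fell.

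Both HIF alpha mRNAs rose in experiment 2 of both basal-like lines. HIF1A was at 90.6, 95.0, 107 and 109 TPM with sgRosa and 249, 230.5, 217 and 198 TPM with sgKLF5 in T3M-4 experiment 2 (log2 fold change 1.15, standard error 0.11, adjusted p = 2.38e-07), and at 132, 117, 132 and 108 TPM and 279.8, 293, 264 and 227 TPM in BxPC-3 experiment 2 (log2 fold change 1.11, standard error 0.08, adjusted p = 1.83e-08). The sgKLF5 libraries lay above all controls in both. HIF1A rose in AsPC-1 experiment 3 (0.53). The HIF1A values that did not pass were those of AsPC-1 experiment 1 (0.45), SUIT-2 (-0.25), T3M-4 experiment 1 (-0.72), BxPC-3 experiment 1 (0.54) and CFPAC-1 (0.06). Without sgKLF5 replicate 2, HIF1A in T3M-4 experiment 1 was at 0.08 (adjusted p = 0.717 by limma), so that library set the sign of the value there. EPAS1 rose in AsPC-1 experiment 1 (0.55, lost without sgRosa replicate 2), T3M-4 experiment 2 (0.76) and BxPC-3 experiment 2 (0.83). The EPAS1 values that did not pass were those of AsPC-1 experiment 3 (0.22), SUIT-2 (0.82), T3M-4 experiment 1 (-0.69), BxPC-3 experiment 1 (0.30) and CFPAC-1 (-0.18). Without sgKLF5 replicate 2, EPAS1 in T3M-4 experiment 1 was at -0.17 (adjusted p = 0.627 by limma).

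Members named above had these log2 fold changes once the libraries that stood apart were left out. In AsPC-1 experiment 1 without sgKLF5 replicate 6, SLC2A1 was at -1.79, PKM at -0.98, SLC16A3 at -0.94, CA12 at 2.43, CA9 at 1.90, VEGFA at 0.88, P4HA2 at 0.91 and EPAS1 at 0.58, all in the direction seen with it. For T3M-4 experiment 1 without sgKLF5 replicate 2, the values were -0.17 for SLC2A1 (adjusted p = 0.311 by limma), 0.77 for SLC16A3 (adjusted p = 0.000591), 0.21 for PKM (adjusted p = 0.0773), -0.11 for LDHA (adjusted p = 0.313) and -0.20 for PGK1 (adjusted p = 0.095). For SUIT-2 without sgRosa replicate 1, they were 0.49 for EPAS1 (adjusted p = 0.0443 by limma), 0.31 for SLC16A3 (adjusted p = 0.0436), -0.27 for LDHA (adjusted p = 0.0473), 0.03 for SLC2A1 (adjusted p = 0.911), -0.45 for CA12 (adjusted p = 0.384), -0.46 for HIF1A (adjusted p = 0.741) and -0.41 for VEGFA (adjusted p = 0.133).

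**Figure D2:**
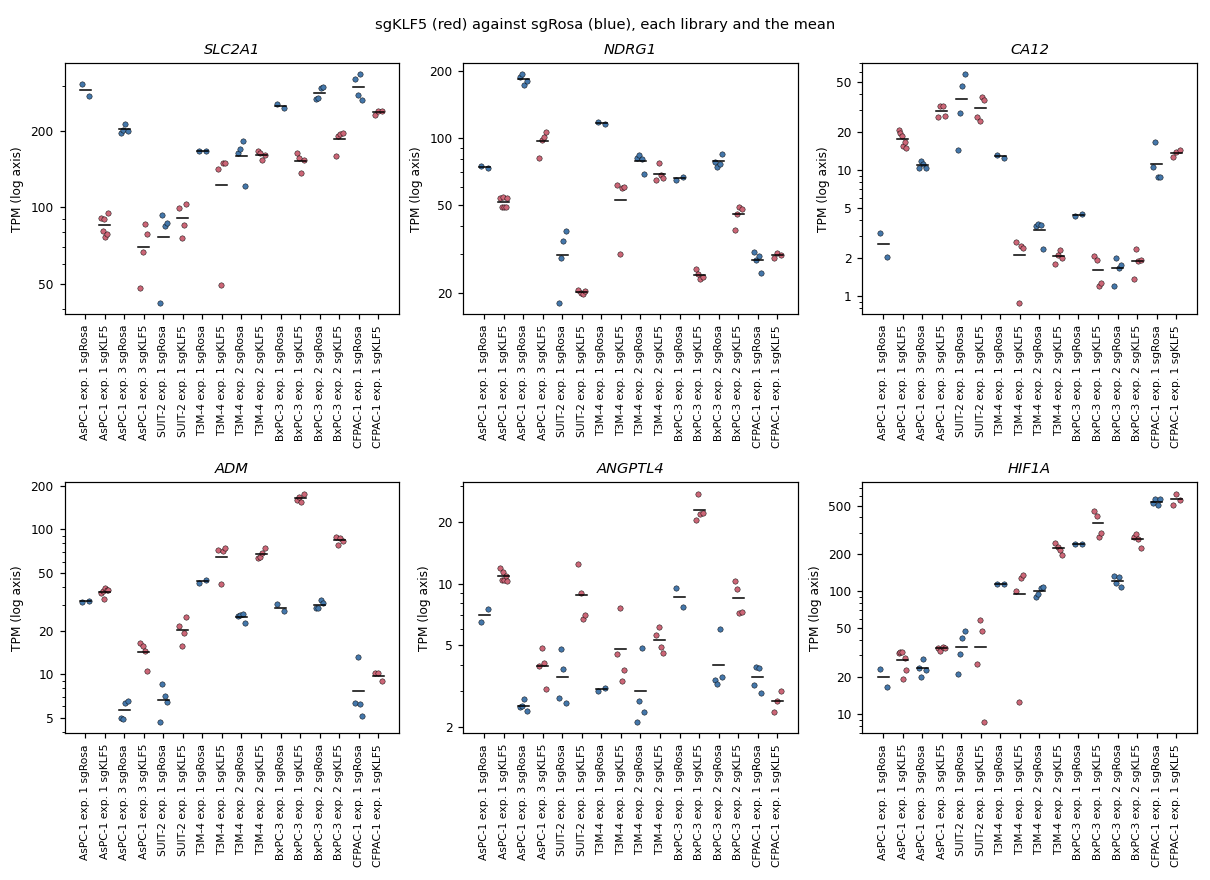
Level in TPM (log axis) of SLC2A1, NDRG1, CA12, ADM, ANGPTL4 and HIF1A in each library of the sgRosa and sgKLF5 groups of the 8 comparisons, 1 point per library with the group mean as a bar. SLC2A1 is lower with sgKLF5 in both AsPC-1 experiments, CA12 is higher there and lower in T3M-4 experiment 1, and ADM is higher with sgKLF5 in BxPC-3.

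AsPC-1, T3M-4 and BxPC-3 were each tested in a pair of experiments, and the difference between the sgKLF5 effects was tested as an interaction, later minus earlier experiment. In AsPC-1, 4 of 36 members differed (all genes 4.6%): ADM had a higher value in experiment 3 (0.97, standard error 0.18, adjusted p = 0.00364), and CA9 (-1.02), CA12 (-1.04, lost without sgRosa replicate 2) and ALDOC (-0.65, unstable, scale-dependent) had lower values there. The control levels of CA9, CA12 and ADM given above differed between the same experiments, and their part in these differences was not tested. In T3M-4, 3 of 37 differed (all genes 1.67%), namely CA12 (1.71, standard error 0.32, adjusted p = 0.0199, unstable), EGLN3 (1.21, unstable) and BNIP3 (1.06, unstable), whereas the counts with 1 library left out included 19 without sgKLF5 replicate 2 of experiment 1 (27.6%), 0 without sgRosa replicate 1 of experiment 1 (0.109%), 0 without sgRosa replicate 2 of experiment 1 (0.132%), 0 without sgKLF5 replicate 2 of experiment 2 (0.437%), 0 without sgKLF5 replicate 3 of experiment 2 (0.522%) and 1 without sgKLF5 replicate 4 of experiment 2 (0.717%). In BxPC-3, 14 of 36 differed (all genes 19.8%), among them PFKFB4 (1.33, standard error 0.20, adjusted p = 0.000238), ADM (-1.02), LOX (-1.21), LDHA (0.61) and CA12 (1.18). ADM and LOX rose in both BxPC-3 experiments but by less in experiment 2. The counts with 1 library left out included 2 without sgRosa replicate 2 of experiment 1 (1.67%) and 7 without sgKLF5 replicate 3 of experiment 3 (5.69%) in AsPC-1 and 9 without sgRosa replicate 1 of experiment 1 (9.78%) in BxPC-3.

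Targeting RUVBL1 or RUVBL2 moved members of each role in both directions. Among the genes of glycolysis and lactate handling, HK1, PFKL, PFKM, GPI, ENO1, GAPDH and LDHA fell in at least 4 of 9 comparisons, while ALDOC, PFKFB3 and SLC16A3 rose in at least 5. Among the hypoxia-response genes and HIF subunits, ADM, NDRG1, KDM3A, ANGPTL4, P4HA1, P4HA2, ANKRD37 and EPAS1 rose in at least 4, while CA12 fell in 4 and VEGFA rose in none. AsPC-1 and T3M-4 carried most of these calls. CFPAC-1 sgRUVBL1 had mostly falls. In AsPC-1 experiment 2 with sgRUVBL1, 13 rose and 7 fell of 35 tested, where 30.0% and 25.8% of all genes tested did. In AsPC-1 experiment 3, 13 rose and 9 fell of 35 tested, where 36.6% and 15.2% of all genes tested did with sgRUVBL1 (8 and 14, against 23.4% and 26.5% of all genes, after rescaling), and 11 rose and 4 fell of 35 tested, where 32.2% and 11% of all genes tested did with sgRUVBL2 (7 and 13, against 18.9% and 21.9% of all genes, after rescaling). For T3M-4 experiment 2, 12 rose and 11 fell of 37 tested, where 45.9% and 14.6% of all genes tested did with sgRUVBL1 (6 and 21, against 26.4% and 29.8% of all genes, after rescaling), and 13 rose and 12 fell of 37 tested, where 39.3% and 15.2% of all genes tested did with sgRUVBL2 (8 and 21, against 24.7% and 28.3% of all genes, after rescaling). For BxPC-3 experiment 2, 8 rose and 6 fell of 36 tested, where 8.29% and 7.67% of all genes tested did with sgRUVBL1, and 2 rose and 5 fell of 36 tested, where 4.27% and 5.48% of all genes tested did with sgRUVBL2 (5 and 4, against 7.59% and 6.43% of all genes, after rescaling). For CFPAC-1, 2 rose and 18 fell of 38 tested, where 6.54% and 37.3% of all genes tested did with sgRUVBL1 (8 and 8, against 19.2% and 16.9% of all genes, after rescaling), and 2 rose and 4 fell of 38 tested, where 2.83% and 9.26% of all genes tested did with sgRUVBL2 (3 and 1, against 5.22% and 5.98% of all genes, after rescaling). The sgRUVBL1 and sgRUVBL2 groups share sgRosa libraries within an experiment. With 1 library left out, the counts moved by over 1.5 times to 8 without sgRUVBL1 replicate 1 (9.63%), 7 without sgRUVBL1 replicate 2 (9.59%), 8 without sgRosa replicate 1 (11.9%) and 8 without sgRosa replicate 2 (11%) in BxPC-3 with sgRUVBL1 and to 4 without sgRosa replicate 2 (4.88%) there with sgRUVBL2, the share of all genes called standing in brackets.

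In T3M-4 the median of all genes was itself raised, so the members' position is given against it. The members' median was -0.03 against 0.25 for all genes with sgRUVBL1 and -0.14 against 0.19 for all genes with sgRUVBL2 in T3M-4, that is -0.29 and -0.33 relative to all genes. In AsPC-1 it was 0.05 against 0.02 for all genes in experiment 2, and 0.05 against 0.16 for all genes and 0.03 against 0.13 for all genes with sgRUVBL1 and sgRUVBL2 in experiment 3. In BxPC-3 it was -0.04 against 0.01 for all genes and -0.05 against -0.06 for all genes, and in CFPAC-1 -0.26 against -0.20 for all genes and -0.07 against -0.09 for all genes, with sgRUVBL1 and sgRUVBL2 respectively.

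The largest fall of an enzyme was that of LDHB in T3M-4, and GAPDH fell there too. GAPDH in T3M-4 was at 12290, 12760, 12710 and 15020 TPM with sgRosa, 8480, 7655 and 8570 TPM with sgRUVBL1 and 8669, 8250, 9203 and 8446 TPM with sgRUVBL2. Every knockout library was below every control. GAPDH fell in AsPC-1 experiment 2 sgRUVBL1 (-0.19), AsPC-1 experiment 3 sgRUVBL1 (-0.15, lost without sgRosa replicate 2), T3M-4 experiment 2 sgRUVBL1 (-0.68) and T3M-4 experiment 2 sgRUVBL2 (-0.61). The 5 remaining GAPDH values ran from -0.23 to 0.01 and did not pass. LDHB, the partner subunit of LDHA, was at 2419, 2304, 2174 and 2805 TPM with sgRosa, 1241, 1114 and 1201 TPM with sgRUVBL1 and 1383, 1237, 1243 and 1249 TPM with sgRUVBL2 in T3M-4. These were the largest falls of any member in that line (log2 fold change -1.03, standard error 0.07, adjusted p = 1.13e-08 for sgRUVBL1; log2 fold change -0.92, standard error 0.07, adjusted p = 1.41e-08 for sgRUVBL2). LDHB fell in BxPC-3 experiment 2 sgRUVBL1 (-0.38). The LDHB values that did not pass were those of BxPC-3 experiment 2 sgRUVBL2 (-0.15), CFPAC-1 sgRUVBL1 (0.12) and CFPAC-1 sgRUVBL2 (-0.05). LDHB was below the filter in AsPC-1 experiment 2 sgRUVBL1, AsPC-1 experiment 3 sgRUVBL1 and AsPC-1 experiment 3 sgRUVBL2. LDHA in AsPC-1 experiment 2 was at 1947, 1980, 1980 and 2011 TPM with sgRosa and 1576, 1706, 1560 and 1604 TPM with sgRUVBL1, again apart. LDHA fell in AsPC-1 experiment 2 sgRUVBL1 (-0.30), AsPC-1 experiment 3 sgRUVBL1 (-0.29), AsPC-1 experiment 3 sgRUVBL2 (-0.23), T3M-4 experiment 2 sgRUVBL1 (-0.36), T3M-4 experiment 2 sgRUVBL2 (-0.40) and BxPC-3 experiment 2 sgRUVBL1 (-0.24, unstable, scale-dependent). The 3 remaining LDHA values ran from -0.13 to -0.03 and did not pass. ENO1 fell in AsPC-1 experiment 2 sgRUVBL1 (-0.19), AsPC-1 experiment 3 sgRUVBL1 (-0.29), AsPC-1 experiment 3 sgRUVBL2 (-0.22), T3M-4 experiment 2 sgRUVBL1 (-0.58), T3M-4 experiment 2 sgRUVBL2 (-0.62) and CFPAC-1 sgRUVBL1 (-0.18, unstable, scale-dependent). The 3 remaining ENO1 values ran from -0.15 to -0.04 and did not pass.

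Among the enzymes of the first steps, falls were also the more frequent. HK1 fell in AsPC-1 experiment 3 sgRUVBL1 (-0.28), T3M-4 experiment 2 sgRUVBL1 (-0.54), T3M-4 experiment 2 sgRUVBL2 (-0.47), BxPC-3 experiment 2 sgRUVBL1 (-0.31), BxPC-3 experiment 2 sgRUVBL2 (-0.29, scale-dependent) and CFPAC-1 sgRUVBL1 (-0.36, lost without sgRUVBL1 replicate 1, scale-dependent). The 3 remaining HK1 values ran from -0.12 to -0.04 and did not pass. HK2, the inducible hexokinase, did not share one direction with HK1. HK2 rose in T3M-4 experiment 2 sgRUVBL1 (0.71), T3M-4 experiment 2 sgRUVBL2 (0.46) and BxPC-3 experiment 2 sgRUVBL1 (0.51) and fell in AsPC-1 experiment 2 sgRUVBL1 (-0.49), AsPC-1 experiment 3 sgRUVBL1 (-0.38) and CFPAC-1 sgRUVBL1 (-0.45). The 3 remaining HK2 values ran from -0.30 to 0.20 and did not pass. GPI fell in T3M-4 experiment 2 sgRUVBL1 (-0.35, lost without sgRUVBL1 replicate 2), T3M-4 experiment 2 sgRUVBL2 (-0.47), BxPC-3 experiment 2 sgRUVBL2 (-0.29), CFPAC-1 sgRUVBL1 (-0.51) and CFPAC-1 sgRUVBL2 (-0.41, unstable, scale-dependent). The 4 remaining GPI values ran from -0.18 to -0.04 and did not pass. Phosphofructokinase, the committed step, has 3 subunit genes. PFKL fell in AsPC-1 experiment 2 sgRUVBL1 (-0.46), AsPC-1 experiment 3 sgRUVBL1 (-0.48), AsPC-1 experiment 3 sgRUVBL2 (-0.52), BxPC-3 experiment 2 sgRUVBL1 (-0.30), BxPC-3 experiment 2 sgRUVBL2 (-0.41) and CFPAC-1 sgRUVBL1 (-0.54). The 3 remaining PFKL values ran from -0.19 to -0.15 and did not pass. PFKM fell in AsPC-1 experiment 2 sgRUVBL1 (-0.55), AsPC-1 experiment 3 sgRUVBL1 (-0.16, lost without sgRosa replicate 2), T3M-4 experiment 2 sgRUVBL1 (-0.71), T3M-4 experiment 2 sgRUVBL2 (-0.66), BxPC-3 experiment 2 sgRUVBL1 (-0.52) and BxPC-3 experiment 2 sgRUVBL2 (-0.49). The 3 remaining PFKM values ran from -0.26 to -0.08 and did not pass. PFKP, the platelet-type subunit, split by line. PFKP rose in AsPC-1 experiment 2 sgRUVBL1 (0.18, unstable) and AsPC-1 experiment 3 sgRUVBL1 (0.28, scale-dependent) and fell in T3M-4 experiment 2 sgRUVBL1 (-0.29), T3M-4 experiment 2 sgRUVBL2 (-0.23, unstable), BxPC-3 experiment 2 sgRUVBL1 (-0.24, unstable) and CFPAC-1 sgRUVBL1 (-0.43). The 3 remaining PFKP values ran from -0.27 to 0.17 and did not pass.

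The aldolase isozyme ALDOC moved the other way from most enzymes. ALDOC rose in AsPC-1 experiment 2 sgRUVBL1 (0.83), T3M-4 experiment 2 sgRUVBL2 (0.45, scale-dependent), BxPC-3 experiment 2 sgRUVBL1 (0.35, unstable, scale-dependent), CFPAC-1 sgRUVBL1 (0.63) and CFPAC-1 sgRUVBL2 (0.53, unstable). The 4 remaining ALDOC values ran from 0.16 to 0.35 and did not pass. PGK1 was called in AsPC-1. After rescaling it rose in CFPAC-1 sgRUVBL1 (0.19, adjusted p = 0.0177 by limma). In T3M-4 experiment 2 it fell after rescaling with sgRUVBL1 (-0.22, adjusted p = 0.0248 by limma) and sgRUVBL2 (-0.20, adjusted p = 0.0311). PGK1 rose in AsPC-1 experiment 2 sgRUVBL1 (0.22), AsPC-1 experiment 3 sgRUVBL1 (0.34, scale-dependent) and AsPC-1 experiment 3 sgRUVBL2 (0.19, scale-dependent). The 6 remaining PGK1 values ran from -0.03 to 0.07 and did not pass. SLC2A1, the entry carrier, was called once. SLC2A1 rose in BxPC-3 experiment 2 sgRUVBL1 (0.36, unstable). The 8 remaining SLC2A1 values ran from -0.24 to 0.18 and did not pass. After rescaling, the value of CFPAC-1 sgRUVBL1 passed as a rise (0.21, adjusted p = 0.0141 by limma). SLC16A3, the exit carrier, was called more often. SLC16A3 rose in AsPC-1 experiment 2 sgRUVBL1 (0.76), AsPC-1 experiment 3 sgRUVBL1 (0.35, scale-dependent), AsPC-1 experiment 3 sgRUVBL2 (0.28, unstable, scale-dependent), T3M-4 experiment 2 sgRUVBL1 (0.50), T3M-4 experiment 2 sgRUVBL2 (0.48) and CFPAC-1 sgRUVBL2 (0.22, unstable). The 3 remaining SLC16A3 values ran from -0.09 to 0.17 and did not pass. PFKFB3 rose in AsPC-1 experiment 2 sgRUVBL1 (0.47), AsPC-1 experiment 3 sgRUVBL1 (0.61), AsPC-1 experiment 3 sgRUVBL2 (0.51), T3M-4 experiment 2 sgRUVBL1 (0.38, lost without sgRUVBL1 replicate 2, scale-dependent) and T3M-4 experiment 2 sgRUVBL2 (0.33, unstable, scale-dependent) and fell in CFPAC-1 sgRUVBL1 (-0.43, unstable, scale-dependent). The 3 remaining PFKFB3 values ran from -0.35 to 0.15 and did not pass. PFKFB3 makes the fructose 2,6-bisphosphate that activates phosphofructokinase.

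NDRG1 had the largest rise of the members in AsPC-1 experiment 2, from 40.9, 41.7, 43.3 and 43.0 TPM with sgRosa to 139.5, 148, 165 and 169 TPM with sgRUVBL1 (log2 fold change 1.85, standard error 0.07, adjusted p = 5.3e-11). In experiment 3 the controls were already at 187, 192, 172 and 179 TPM, and sgRUVBL1 gave 292, 283, 234 and 232 TPM. The rise was thus smaller where the control level was higher. The difference between the experiments was not tested. NDRG1 rose in AsPC-1 experiment 2 sgRUVBL1 (1.85), AsPC-1 experiment 3 sgRUVBL1 (0.50), AsPC-1 experiment 3 sgRUVBL2 (0.32, scale-dependent), T3M-4 experiment 2 sgRUVBL1 (0.55), T3M-4 experiment 2 sgRUVBL2 (0.43), BxPC-3 experiment 2 sgRUVBL1 (0.72) and BxPC-3 experiment 2 sgRUVBL2 (0.39, unstable). The NDRG1 values that did not pass were those of CFPAC-1 sgRUVBL1 (-0.01) and CFPAC-1 sgRUVBL2 (0.21). ADM in AsPC-1 experiment 3 was at 4.99, 4.89, 6.35 and 6.50 TPM with sgRosa, 19.3, 26.3, 15 and 16.3 TPM with sgRUVBL1 and 16.4, 19.4, 18.1 and 17.6 TPM with sgRUVBL2, with both knockout groups clear of the controls. ADM rose in AsPC-1 experiment 2 sgRUVBL1 (0.77), AsPC-1 experiment 3 sgRUVBL1 (1.57), AsPC-1 experiment 3 sgRUVBL2 (1.51), T3M-4 experiment 2 sgRUVBL1 (1.19), T3M-4 experiment 2 sgRUVBL2 (1.19), BxPC-3 experiment 2 sgRUVBL1 (0.42, unstable) and CFPAC-1 sgRUVBL1 (0.57, unstable). The 2 remaining ADM values ran from 0.01 to 0.24 and did not pass. KDM3A, the histone demethylase, rose by less but as often. KDM3A rose in AsPC-1 experiment 2 sgRUVBL1 (0.69), AsPC-1 experiment 3 sgRUVBL1 (0.62), AsPC-1 experiment 3 sgRUVBL2 (0.49), T3M-4 experiment 2 sgRUVBL1 (0.77), T3M-4 experiment 2 sgRUVBL2 (0.65), BxPC-3 experiment 2 sgRUVBL1 (0.41) and BxPC-3 experiment 2 sgRUVBL2 (0.32, unstable). The 2 remaining KDM3A values ran from -0.06 to -0.05 and did not pass. ANGPTL4, the lipase inhibitor, rose most in AsPC-1. ANGPTL4 rose in AsPC-1 experiment 2 sgRUVBL1 (1.59), AsPC-1 experiment 3 sgRUVBL1 (1.31), AsPC-1 experiment 3 sgRUVBL2 (0.91), T3M-4 experiment 2 sgRUVBL1 (0.58, lost without sgRUVBL1 replicate 2, scale-dependent), T3M-4 experiment 2 sgRUVBL2 (0.60) and BxPC-3 experiment 2 sgRUVBL1 (0.67, unstable). The 3 remaining ANGPTL4 values ran from -0.41 to 0.56 and did not pass.

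The collagen prolyl hydroxylases, which need oxygen to modify procollagen, rose in AsPC-1 and T3M-4. P4HA2 rose in AsPC-1 experiment 2 sgRUVBL1 (1.08), AsPC-1 experiment 3 sgRUVBL1 (0.76), AsPC-1 experiment 3 sgRUVBL2 (0.86), T3M-4 experiment 2 sgRUVBL1 (0.32, scale-dependent) and T3M-4 experiment 2 sgRUVBL2 (0.39, scale-dependent). The 4 remaining P4HA2 values ran from 0.02 to 0.16 and did not pass. P4HA1 rose in AsPC-1 experiment 2 sgRUVBL1 (0.52), AsPC-1 experiment 3 sgRUVBL1 (0.54), AsPC-1 experiment 3 sgRUVBL2 (0.35, scale-dependent), T3M-4 experiment 2 sgRUVBL1 (0.31, scale-dependent) and T3M-4 experiment 2 sgRUVBL2 (0.22, lost without sgRUVBL2 replicate 2, scale-dependent). The 4 remaining P4HA1 values ran from -0.06 to 0.15 and did not pass. ANKRD37 had control medians of 1.63 TPM in AsPC-1 and 3.01 TPM in BxPC-3. ANKRD37 rose in AsPC-1 experiment 2 sgRUVBL1 (0.64), T3M-4 experiment 2 sgRUVBL1 (0.60, scale-dependent), T3M-4 experiment 2 sgRUVBL2 (0.57) and BxPC-3 experiment 2 sgRUVBL1 (0.94, unstable). The 5 remaining ANKRD37 values ran from -0.58 to 0.95 and did not pass.

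Neither carbonic anhydrase was called higher. CA9 fell in AsPC-1 experiment 3 sgRUVBL1 (-0.34, unstable) and AsPC-1 experiment 3 sgRUVBL2 (-0.39, unstable). The 3 remaining CA9 values ran from -0.24 to 0.41 and did not pass. CA9 was below the filter in T3M-4 experiment 2 sgRUVBL1, T3M-4 experiment 2 sgRUVBL2, BxPC-3 experiment 2 sgRUVBL1 and BxPC-3 experiment 2 sgRUVBL2. CA12 fell in AsPC-1 experiment 3 sgRUVBL1 (-0.27, unstable), T3M-4 experiment 2 sgRUVBL1 (-0.54), T3M-4 experiment 2 sgRUVBL2 (-0.52) and CFPAC-1 sgRUVBL1 (-0.59, lost without sgRUVBL1 replicate 1, scale-dependent). The 5 remaining CA12 values ran from -0.30 to 0.03 and did not pass. VEGFA, a textbook HIF target, was called once. VEGFA fell in CFPAC-1 sgRUVBL1 (-0.40, scale-dependent). The 8 remaining VEGFA values ran from -0.24 to 0.11 and did not pass. After rescaling, the value of T3M-4 experiment 2 sgRUVBL1 passed as a fall (-0.26, adjusted p = 0.0276 by limma). BNIP3L rose in T3M-4 by 0.64 with sgRUVBL1 and 0.52 with sgRUVBL2, and EGLN3 rose by 0.70 in AsPC-1 experiment 2 and fell by 0.60 on the log2 scale in CFPAC-1 sgRUVBL1. The HIF alpha mRNAs had calls of both signs. HIF1A rose in AsPC-1 experiment 3 sgRUVBL1 (0.33, scale-dependent) and AsPC-1 experiment 3 sgRUVBL2 (0.50) and fell in T3M-4 experiment 2 sgRUVBL2 (-0.30, unstable) and CFPAC-1 sgRUVBL1 (-0.33, unstable, scale-dependent). The 5 remaining HIF1A values ran from -0.14 to 0.13 and did not pass. EPAS1 rose in AsPC-1 experiment 3 sgRUVBL1 (0.52), AsPC-1 experiment 3 sgRUVBL2 (0.41, lost without sgRUVBL2 replicate 4), T3M-4 experiment 2 sgRUVBL1 (0.43, scale-dependent) and T3M-4 experiment 2 sgRUVBL2 (0.38, lost without sgRUVBL2 replicate 4, scale-dependent) and fell in CFPAC-1 sgRUVBL1 (-0.57). The 4 remaining EPAS1 values ran from -0.36 to 0.14 and did not pass.

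CFPAC-1 differed in the balance of its calls, with 18 falls with sgRUVBL1. ENO2 was at 48.0, 53.3, 43.7 and 35.5 TPM with sgRosa and 19.4, 23.8, 28.9 and 25.0 TPM with sgRUVBL1 (log2 fold change -0.87, standard error 0.12, adjusted p = 9.39e-05), and it fell with sgRUVBL2 (-0.60, unstable). The median of all genes was -0.20 in the same comparison, and 8 members fell and 8 rose after rescaling. BNIP3 fell with sgRUVBL1 (-0.59) and sgRUVBL2 (-0.40, unstable, scale-dependent), and EGLN3 and EPAS1 fell with sgRUVBL1. ALDOC was the largest riser in both CFPAC-1 groups. The sgRUVBL2 group there has 2 libraries, and its 6 calls became 0 without sgRUVBL2 replicate 1 (0.612%), 0 without sgRUVBL2 replicate 2 (3.99%), 3 without sgRosa replicate 1 (7.65%) and 3 without sgRosa replicate 2 (9.84%) with 1 library left out. The 20 calls with sgRUVBL1 became 11 without sgRUVBL1 replicate 1 (34.8%).

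CB-6644 was used to ask whether inhibiting the ATPase had effects on these genes within 24 h, in EV cells of AsPC-1 and T3M-4 and in 4 parental lines of other tissues. HK2 and LDHA fell, and TPI1 and KDM3A rose, in all 6 comparisons. PDK1, HK1 and PFKM fell in 5, and ALDOC, PKM, ADM, NDRG1, ANKRD37 and EPAS1 rose in 5. Of the PKM rises only that of A-375 held after rescaling, and some calls of TPI1, KDM3A, ALDOC and EPAS1 did not hold. The T3M-4 call of KDM3A and the AsPC-1 call of PKM did not pass with the EV DMSO library as the only control. Most genes of the fit were called in the 4 parental lines and AsPC-1, and the members' shares are set against that. In AsPC-1 EV cells, 18 rose and 8 fell of 35 tested, where 47.2% and 17.2% of all genes tested did (10 and 10, against 25.4% and 36.6% of all genes, after rescaling). In T3M-4 EV cells, 6 rose and 6 fell of 37 tested, where 19.1% and 15.2% of all genes tested did (2 and 9, against 16.5% and 25.2% of all genes, after rescaling). In T84, 15 rose and 14 fell of 37 tested, where 47.2% and 24.2% of all genes tested did (8 and 19, against 31.4% and 39.6% of all genes, after rescaling), and in A-375, 18 rose and 11 fell of 35 tested, where 51.5% and 29.7% of all genes tested did (15 and 18, against 36.4% and 44.1% of all genes, after rescaling). In H1048, 19 rose and 11 fell of 35 tested, where 53.9% and 24.0% of all genes tested did (12 and 17, against 35.2% and 40.0% of all genes, after rescaling), and in RH30, 14 rose and 12 fell of 35 tested, where 50.4% and 27.3% of all genes tested did (11 and 18, against 35.0% and 41.2% of all genes, after rescaling). The members' median was 0.31 against 0.19 for all genes in AsPC-1, 0.03 against 0.04 for all genes in T3M-4, 0.01 against 0.13 for all genes in T84, 0.10 against 0.16 for all genes in A-375, 0.17 against 0.18 for all genes in H1048 and 0.06 against 0.13 for all genes in RH30. The T3M-4 count was 20 (all genes 41.7%) without the EV DMSO library. The 3 DMSO libraries of AsPC-1 or T3M-4 carry different vectors. A second value "against EV DMSO" is therefore given where the EV DMSO library as the only control moved a called value by over 1.5 times or ended its call. Rises of about the size of the all-gene median are no larger than that of the typical gene.

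HK2, which phosphorylates glucose at the mitochondrial surface, had the largest fall in 5 of the 6 comparisons and the third largest in A-375. In T3M-4 its DMSO libraries (EV, A62T and dF109 in turn) held 15.1, 20.4 and 16.5 TPM and the EV libraries in CB-6644 5.49, 3.85 and 3.61 TPM (log2 fold change -1.79, standard error 0.14, adjusted p = 1.17e-05). In AsPC-1 the DMSO libraries held 17.2, 13.8 and 12.5 TPM and the EV libraries in CB-6644 5.96, 6.48 and 6.88 TPM (log2 fold change -1.05, standard error 0.10, adjusted p = 2.82e-06). No CB-6644 library reached a DMSO library in either line. H1048 had 22.0, 21.6, 23.1 and 22.8 TPM in DMSO and 7.30, 7.89, 6.91 and 8.13 TPM in CB-6644 (log2 fold change -1.45, standard error 0.06, adjusted p = 7.6e-10), and RH30 had 49.4, 48.9, 50.2 and 48.6 TPM in DMSO and 18.5, 20.2, 19.6 and 18.9 TPM in CB-6644 (log2 fold change -1.31, standard error 0.04, adjusted p = 1.98e-11). T84 had 44.2, 56.0, 51.2 and 52.4 TPM in DMSO and 27.7, 29.1, 28.7 and 26.4 TPM in CB-6644 (log2 fold change -0.84, standard error 0.07, adjusted p = 2.09e-08), and A-375 had 43.9, 41.6, 40.3 and 40.2 TPM in DMSO and 23.3, 24.0, 23.7 and 24.3 TPM in CB-6644 (log2 fold change -0.78, standard error 0.04, adjusted p = 4.73e-09). All 6 calls held with each library left out and after rescaling. The other hexokinase, HK1, fell by less. HK1 fell in AsPC-1 (-0.25), T3M-4 (-0.43), A-375 (-0.50), H1048 (-0.24) and RH30 (-0.19). The HK1 value did not pass in T84 (0.01).

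LDHA fell in all 6 lines. T84, with the highest level, had 2162, 2378, 2317 and 2481 TPM in DMSO and 1718, 1692, 1631 and 1756 TPM in CB-6644 (log2 fold change -0.46, standard error 0.04, adjusted p = 8.82e-08), and RH30 had 1141, 1091, 1137 and 1144 TPM in DMSO and 770.3, 738, 773 and 776 TPM in CB-6644 (log2 fold change -0.56, standard error 0.02, adjusted p = 7e-10). The arms did not overlap. LDHA fell in AsPC-1 (-0.35), T3M-4 (-0.45), T84 (-0.46), A-375 (-0.53), H1048 (-0.49) and RH30 (-0.56). LDHB fell in T84 (-0.21), H1048 (-0.15) and RH30 (-0.16). The LDHB values that did not pass were those of T3M-4 (0.09) and A-375 (0.01). LDHB was below the filter in AsPC-1. PDK1, which holds pyruvate out of the mitochondrial citrate cycle by phosphorylating pyruvate dehydrogenase, was at 7.73, 7.42, 7.33 and 7.56 TPM in DMSO and 3.09, 2.81, 3.27 and 2.55 TPM in CB-6644 in A-375 (log2 fold change -1.12, standard error 0.07, adjusted p = 3.57e-08). PDK1 fell in AsPC-1 (-0.68), T84 (-0.79), A-375 (-1.12), H1048 (-0.92) and RH30 (-0.57). The PDK1 value did not pass in T3M-4 (-0.49). With the EV DMSO library alone as control, PDK1 in T3M-4 fell by 1.04 on the log2 scale (adjusted p = 0.000731 by limma). PFKM, the muscle-type phosphofructokinase, fell and PFKL, the liver-type, rose. PFKM fell in AsPC-1 (-0.15, unstable, -0.24 against EV DMSO), T84 (-0.31), A-375 (-0.22), H1048 (-0.24) and RH30 (-0.59). The PFKM value did not pass in T3M-4 (-0.21). PFKL rose in T3M-4 (0.37, unstable, scale-dependent, 0.27 against EV DMSO, not passing), T84 (0.26, scale-dependent), A-375 (0.49) and H1048 (0.60). The PFKL values that did not pass were those of AsPC-1 (0.12) and RH30 (0.07). PFKP rose in AsPC-1 (0.50) and fell in T3M-4 (-0.53, -0.22 against EV DMSO, not passing) and A-375 (-0.38). The PFKP values that did not pass were those of T84 (0.01), H1048 (0.00) and RH30 (0.06).

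Further down the pathway, neighbouring enzymes moved in opposite directions. TPI1 was at 1406, 1417, 1410 and 1439 TPM in DMSO and 2177, 2243, 2172 and 2161 TPM in CB-6644 in A-375 (log2 fold change 0.63, standard error 0.02, adjusted p = 2.28e-10). TPI1 rose in AsPC-1 (0.53), T3M-4 (0.56, scale-dependent, 0.36 against EV DMSO), T84 (0.28, scale-dependent), A-375 (0.63), H1048 (0.30) and RH30 (0.25). GAPDH and ENO1, the enzymes on either side of PGK1 and PGAM1, fell in the 4 parental lines. GAPDH fell in T84 (-0.13), A-375 (-0.29), H1048 (-0.22) and RH30 (-0.21). The GAPDH values that did not pass were those of AsPC-1 (0.06) and T3M-4 (0.20). ENO1 fell in T84 (-0.18), A-375 (-0.18), H1048 (-0.21) and RH30 (-0.09, unstable). The ENO1 values that did not pass were those of AsPC-1 (-0.02) and T3M-4 (-0.05). PGK1 and PKM, both of which make ATP, rose by small amounts. PGK1 rose in T84 (0.19, scale-dependent), A-375 (0.26, scale-dependent), H1048 (0.18, scale-dependent) and RH30 (0.15, scale-dependent). The PGK1 values that did not pass were those of AsPC-1 (0.10) and T3M-4 (0.15). PKM rose in AsPC-1 (0.34, scale-dependent, 0.11 against EV DMSO, not passing), T84 (0.25, scale-dependent), A-375 (0.48), H1048 (0.19, scale-dependent) and RH30 (0.15, scale-dependent). The PKM value did not pass in T3M-4 (0.12). The aldolases differed as well. ALDOC rose in AsPC-1 (0.40, scale-dependent, 0.63 against EV DMSO), T3M-4 (0.98, 0.38 against EV DMSO), T84 (0.44), A-375 (1.05) and H1048 (1.15). The ALDOC value did not pass in RH30 (0.22). ALDOA fell in T84 (-0.13, unstable) and RH30 (-0.11, unstable). The 4 remaining ALDOA values ran from -0.25 to 0.19 and did not pass.

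The carriers of glucose and lactate depended on the line. SLC2A1 was at 280.3, 228 and 195 TPM in the DMSO libraries of AsPC-1 and 138, 142 and 147 TPM in EV cells with CB-6644, below all of them, whereas RH30 had 90.3, 96.9, 90.3 and 86.9 TPM in DMSO and 128, 132, 121 and 120.3 TPM in CB-6644, with the treated arm higher. SLC2A1 rose in A-375 (0.30) and RH30 (0.46) and fell in AsPC-1 (-0.70), T3M-4 (-0.75, -0.49 against EV DMSO, not passing) and H1048 (-0.18, unstable). The SLC2A1 value did not pass in T84 (-0.07). SLC16A3 in H1048 was at 5.73, 6.71, 6.09 and 5.67 TPM in DMSO and 27.5, 26.5, 29.3 and 28.7 TPM in CB-6644 (log2 fold change 2.04, standard error 0.06, adjusted p = 8.88e-11), the largest rise of any member in a CB-6644 comparison. SLC16A3 rose in AsPC-1 (0.88), T84 (0.86), A-375 (1.46) and H1048 (2.04). The SLC16A3 values that did not pass were those of T3M-4 (0.00) and RH30 (0.19). PFKFB4 rose in AsPC-1 (0.31, lost without CB-6644 replicate 2, scale-dependent), A-375 (0.15, scale-dependent), H1048 (0.43) and RH30 (0.21, scale-dependent). The PFKFB4 values that did not pass were those of T3M-4 (0.47) and T84 (0.08).

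Among hypoxia-response genes, ADM and NDRG1 rose in the same 5 lines. ADM was at 1.76, 1.78, 2.50 and 2.3 TPM in DMSO and 7.04, 6.2, 7.08 and 5.82 TPM in CB-6644 in RH30 (log2 fold change 1.29, standard error 0.10, adjusted p = 8.3e-08), from a low level to one above every control. ADM rose in AsPC-1 (1.33), T84 (0.66), A-375 (0.83), H1048 (0.92) and RH30 (1.29). The ADM value did not pass in T3M-4 (-0.14). The T3M-4 value changes sign with the control: the DMSO libraries were at 10.7, 27.5 and 19.4 TPM for EV, A62T and dF109, and against the EV library alone ADM rose by 0.56 (adjusted p = 0.0236 by limma). NDRG1 was at 3.04, 3.07, 3.42 and 3.44 TPM in DMSO and 8.79, 8.29, 9.08 and 9.59 TPM in CB-6644 in H1048. NDRG1 rose in AsPC-1 (0.90), T84 (0.39), A-375 (1.38), H1048 (1.23) and RH30 (1.23). The NDRG1 value did not pass in T3M-4 (0.20). KDM3A, whose product removes repressive histone methylation, had smaller changes of 1 sign. KDM3A rose in AsPC-1 (0.39, scale-dependent), T3M-4 (0.44, scale-dependent, 0.27 against EV DMSO, not passing), T84 (0.34), A-375 (0.62), H1048 (0.58) and RH30 (0.89). ANKRD37 was at 4.08, 3.56, 4.66 and 3.34 TPM in DMSO and 9.48, 10.3, 12.8 and 7.74 TPM in CB-6644 in T84 (log2 fold change 1.17, standard error 0.12, adjusted p = 4.97e-07). ANKRD37 rose in T3M-4 (0.76), T84 (1.17), A-375 (1.29), H1048 (0.80) and RH30 (0.73). The ANKRD37 value did not pass in AsPC-1 (0.34). EGLN3, which marks HIF alpha for degradation, was at 0.502, 0.452, 0.413 and 0.510 TPM in DMSO and 2.81, 3.46, 3.64 and 3.56 TPM in CB-6644 in A-375, a rise from under 1 TPM. EGLN3 rose in AsPC-1 (1.06), T84 (0.27, scale-dependent), A-375 (1.57) and H1048 (0.53). The EGLN3 values that did not pass were those of T3M-4 (0.50) and RH30 (0.00).

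VEGFA, also a secreted factor, fell in the 4 parental lines and T3M-4. It was at 34.5, 33.1, 33.1 and 32.9 TPM in DMSO and 16.4, 18.4, 17.5 and 15.9 TPM in CB-6644 in A-375 (log2 fold change -0.93, standard error 0.05, adjusted p = 7.99e-09). VEGFA rose in AsPC-1 (0.53, unstable, scale-dependent, 0.03 against EV DMSO, not passing) and fell in T3M-4 (-0.50, unstable, -0.33 against EV DMSO, not passing), T84 (-0.45), A-375 (-0.93), H1048 (-0.18) and RH30 (-0.71). CA9 fell in both lines where it was measured above the filter. CA9 fell in AsPC-1 (-0.63, -0.28 against EV DMSO) and T84 (-0.61). CA9 was below the filter in T3M-4, A-375, H1048 and RH30. The P4H subunits parted in RH30, where P4HA2 was at 14.0, 13.9, 13.3 and 15 TPM in DMSO and 5.54, 5.38, 5.08 and 5.29 TPM in CB-6644 (log2 fold change -1.25, standard error 0.05, adjusted p = 6.51e-10). P4HA1 rose there by 0.77. P4HA1 rose in T84 (0.35), A-375 (0.53), H1048 (0.41) and RH30 (0.77). The P4HA1 values that did not pass were those of AsPC-1 (0.17) and T3M-4 (0.40). P4HA2 rose in AsPC-1 (0.53, 0.35 against EV DMSO), T84 (0.54) and H1048 (0.32, scale-dependent) and fell in RH30 (-1.25). The P4HA2 values that did not pass were those of T3M-4 (0.03) and A-375 (0.10). BNIP3 rose in T3M-4 (0.54, unstable, scale-dependent, 0.10 against EV DMSO, not passing), T84 (0.15, unstable, scale-dependent), A-375 (0.46) and H1048 (0.10, unstable, scale-dependent). The BNIP3 value did not pass in RH30 (-0.06). BNIP3 was below the filter in AsPC-1. ANGPTL4 was above the filter in only 4 lines. ANGPTL4 rose in AsPC-1 (1.35, 0.80 against EV DMSO) and A-375 (1.82). The ANGPTL4 values that did not pass were those of T3M-4 (-0.07) and T84 (-0.09). ANGPTL4 was below the filter in H1048 and RH30.

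EPAS1 rose most in A-375 and RH30. It was at 1.04, 1.22, 1.44 and 1.28 TPM in DMSO and 6.17, 6.21, 5.67 and 5.57 TPM in CB-6644 in A-375 (log2 fold change 1.62, standard error 0.08, adjusted p = 4.07e-09) and at 4.69, 4.09, 5.36 and 4.41 TPM in DMSO and 15.9, 16.5, 16.2 and 16.5 TPM in CB-6644 in RH30 (log2 fold change 1.62, standard error 0.07, adjusted p = 4.58e-10). Both treated arms lay above their controls. EPAS1 rose in AsPC-1 (0.59, 0.37 against EV DMSO), T84 (0.16, unstable, scale-dependent) and H1048 (0.35). The EPAS1 value did not pass in T3M-4 (-0.31). HIF1A rose in AsPC-1 (0.36, scale-dependent) and RH30 (0.27) and fell in A-375 (-0.53). The HIF1A values that did not pass were those of T3M-4 (0.15), T84 (0.09) and H1048 (0.07). In A-375 the HIF alpha mRNAs therefore moved in opposite directions, HIF1A down and EPAS1 up.

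**Figure D3:**
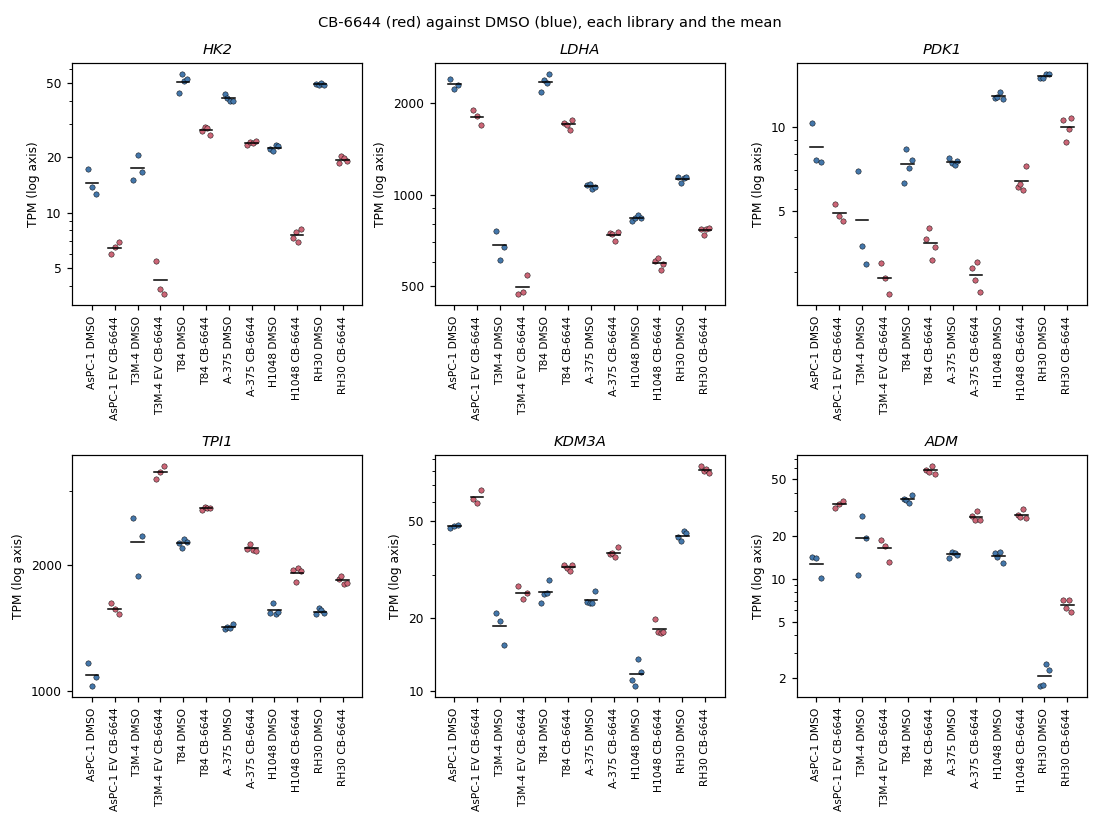
Level in TPM (log axis) of HK2, LDHA, PDK1, TPI1, KDM3A and ADM in each DMSO and CB-6644 library of the 6 comparisons, 1 point per library with the group mean as a bar. HK2 and LDHA are lower and TPI1 and KDM3A higher with CB-6644 in every line, and ADM in T3M-4 overlaps its DMSO libraries.

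RUVBL1 A62T and RUVBL2 dF109, which confer resistance to CB-6644, were used to ask which changes depended on the inhibited ATPase. HK2 fell in CB-6644 in EV cells and was higher in variant cells than in EV cells under the drug in both lines. In T3M-4 under CB-6644 it was at 5.49, 3.85 and 3.61 TPM in EV, 15.4, 15.9 and 14.2 TPM in A62T and 11.5, 11.5 and 11.7 TPM in dF109 cells. The differences from EV were 1.62, adjusted p = 4.67e-05 for A62T and 1.26, adjusted p = 0.000718 for dF109. In AsPC-1 the corresponding levels were 5.96, 6.48 and 6.88 TPM, 13.5, 12.7 and 13.1 TPM and 11.8, 12.2 and 11.2 TPM, with differences of 0.92, adjusted p = 1.45e-05 for A62T and 0.77, adjusted p = 6.74e-05 for dF109. No variant library overlapped an EV library. Against the 3 DMSO libraries, HK2 in the variant cells changed by -0.13, adjusted p = 0.395 in AsPC-1 A62T, -0.28, adjusted p = 0.0483, unstable in AsPC-1 dF109, -0.17, adjusted p = 0.318 in T3M-4 A62T and -0.53, adjusted p = 0.0157, unstable in T3M-4 dF109. The falls in dF109 cells passed in both lines, and that of AsPC-1 did not pass against its own DMSO library (-0.09, adjusted p = 0.427 by limma).

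ANGPTL4 and ALDOC, which rose in EV cells, were lower in the variants. ANGPTL4 in AsPC-1 under CB-6644 was at 17.1, 18.7 and 20.0 TPM in EV, 8.19, 7.34 and 8.67 TPM in A62T and 6.40, 6.90 and 5.80 TPM in dF109 cells (-1.11, adjusted p = 0.000329 and -1.41, adjusted p = 6.72e-05). ALDOC in T3M-4 was at 146, 140.3 and 148 TPM in EV, 66.3, 66.0 and 64.8 TPM in A62T and 75.1, 69.9 and 66.5 TPM in dF109 cells (-1.13, adjusted p = 0.00109 and -1.03, adjusted p = 0.00452). In both cases all variant libraries were below all EV libraries. Both genes were already lower in the variants without the drug. In DMSO, ANGPTL4 in AsPC-1 was at 10.2 TPM in EV, 5.76 TPM in A62T and 4.89 TPM in dF109 cells (differences from EV of -0.73 and -0.93 on the log2(TPM + 1) scale), and ALDOC in T3M-4 at 111 TPM in EV, 58.5 TPM in A62T and 59.8 TPM in dF109 cells (differences from EV of -0.92 and -0.88 on the log2(TPM + 1) scale). These are single libraries, and the DMSO differences were not tested. CA9, which fell in AsPC-1 EV cells, was higher in dF109 than in EV cells under the drug (0.99, adjusted p = 4.92e-05). In DMSO it was at 238 TPM in EV, 305 TPM in A62T and 388 TPM in dF109 cells (differences from EV of 0.36 and 0.70 on the log2(TPM + 1) scale), again in single libraries and not tested. In AsPC-1, 27 of 35 members differed between A62T and EV under CB-6644 (all genes 51.1%) and 22 of 35 between dF109 and EV (all genes 47.2%). In T3M-4 these were 25 of 37 (all genes 50.6%) and 20 of 37 (all genes 34.6%). The AsPC-1 A62T count was 17 without A62T CB-6644 replicate 2 (42.8%), and the T3M-4 dF109 count was 10 without EV CB-6644 replicate 2 (19.2%), 11 without EV CB-6644 replicate 3 (20.2%), 9 without dF109 CB-6644 replicate 1 (16.3%), 9 without dF109 CB-6644 replicate 2 (14.4%) and 10 without dF109 CB-6644 replicate 3 (15.4%), all genes in brackets. The members' median difference was -0.21 against -0.09 for all genes and -0.24 against -0.04 for all genes in AsPC-1, and -0.02 against 0.27 for all genes and 0.03 against 0.24 for all genes in T3M-4, for A62T and dF109. In A62T against EV, the higher and lower calls among members numbered 6 and 21 in AsPC-1 (9 and 14, against 30.3% and 22.0% of all genes, after rescaling) and 12 and 13 in T3M-4 (8 and 17, against 22.7% and 20.6% of all genes, after rescaling), and in dF109 against EV in T3M-4 9 and 11 (6 and 13, against 14.2% and 11.8% of all genes, after rescaling).

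Variant cells in CB-6644 were also compared with DMSO. 5 of 35 members were called in AsPC-1 A62T (all genes 12.7%), 13 of 35 in AsPC-1 dF109 (all genes 33.4%), 19 of 37 in T3M-4 A62T (all genes 50.0%) and 11 of 37 in T3M-4 dF109 (all genes 37.6%), with members' medians of 0.02 against 0.10 for all genes, 0.06 against 0.14 for all genes, 0.01 against 0.33 for all genes and 0.01 against 0.29 for all genes. Counts that moved by over 1.5 times with 1 library left out were, in AsPC-1 A62T, 1 without A62T CB-6644 replicate 1 (0.963%), 2 without A62T CB-6644 replicate 2 (5.78%), 2 without A62T CB-6644 replicate 3 (4.11%), 9 without EV DMSO replicate 1 (22.9%) and 3 without dF109 DMSO replicate 1 (4.26%), and in AsPC-1 dF109, 6 without dF109 CB-6644 replicate 1 (15.3%) and 6 without dF109 CB-6644 replicate 2 (16.0%). In T3M-4 A62T they were 11 without A62T CB-6644 replicate 1 (28.8%), 11 without A62T CB-6644 replicate 2 (31.2%), 10 without A62T CB-6644 replicate 3 (28.9%) and 10 without dF109 DMSO replicate 1 (27.7%), and in T3M-4 dF109 18 without A62T DMSO replicate 1 (57.2%), 5 without dF109 CB-6644 replicate 1 (19.7%), 3 without dF109 CB-6644 replicate 2 (17.8%), 4 without dF109 CB-6644 replicate 3 (19.6%) and 5 without dF109 DMSO replicate 1 (19.2%). With the own-vector DMSO library as the only control, fewer members were called in A62T cells of both lines, and about as many in dF109 cells. Such a fit has 1 control library, and the share of all genes called in it is not given here. The drop therefore cannot be read as a result about the members. SLC16A3 rose in AsPC-1 in A62T (0.42, adjusted p = 0.0101, lost without CB-6644 replicate 1) and dF109 (0.39, adjusted p = 0.00417), and PGAM1 fell in A62T (-0.23, adjusted p = 0.0314, unstable). In T3M-4, PFKFB3, which makes fructose 2,6-bisphosphate, rose in A62T (0.67, adjusted p = 0.0121) and dF109 (0.55, adjusted p = 0.0295, unstable, scale-dependent), LDHB fell in A62T (-0.81, adjusted p = 0.00554) and LDHA fell in dF109 (-0.54, adjusted p = 0.00279). These values are against the 3 DMSO libraries together, which differed between vectors. For EV, A62T and dF109 in turn, T3M-4 in DMSO had PFKFB3 at 23.4, 42.2 and 31.5 TPM and LDHB at 2938, 1737 and 2321 TPM. LDHA there was at 762, 609 and 675 TPM. The part of the vector in these changes was not tested. The higher and lower calls were 4 and 1 in AsPC-1 A62T (2 and 6, against 5.3% and 8.53% of all genes, after rescaling), 8 and 5 in AsPC-1 dF109 (2 and 11, against 11.7% and 19.9% of all genes, after rescaling), 10 and 9 in T3M-4 A62T (1 and 14, against 10.3% and 18.7% of all genes, after rescaling) and 3 and 8 in T3M-4 dF109 (0 and 13, against 8.59% and 15.9% of all genes, after rescaling).

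**Figure D4:**
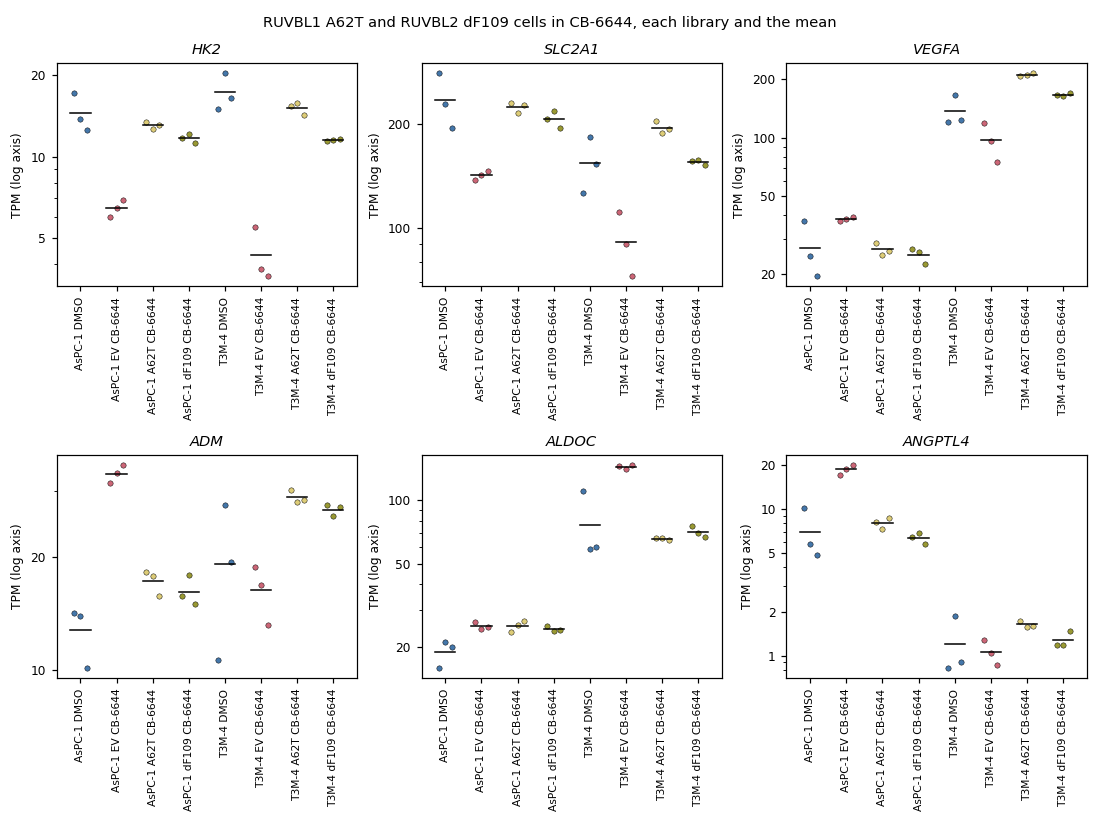
Level in TPM (log axis) of HK2, SLC2A1, VEGFA, ADM, ALDOC and ANGPTL4 in AsPC-1 and T3M-4 cells with the empty vector, RUVBL1 A62T or RUVBL2 dF109, in DMSO (1 library each) and CB-6644 (3 libraries each), 1 point per library with the group mean as a bar, the 3 DMSO libraries of a line (1 per vector) being drawn as 1 group. HK2 is lowest in empty-vector cells with CB-6644 in both lines.

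Targeting CHD4 in AsPC-1 moved members in both directions, with P4HA2, SLC16A3 and ENO2 up and PDK1 and CA12 down. Of these, 15 rose and 14 fell of 35 tested, where 23.3% and 26.7% of all genes tested did, and the members' median was 0.04 against -0.03 for all genes. P4HA2 was at 9.45, 7.90, 8.65 and 8.25 TPM with sgRosa and 33.5, 31.6, 31.3 and 32.5 TPM with sgCHD4 (log2 fold change 1.80, standard error 0.07, adjusted p = 4.9e-09), and SLC16A3 at 48.8, 48.0, 51.7 and 49.6 TPM and 145, 151, 135 and 136 TPM (log2 fold change 1.5, standard error 0.05, adjusted p = 1.43e-09). ENO2, with 6.71, 8.31, 6.82 and 5.73 TPM against 15.4, 17.5, 19.5 and 18.6 TPM, rose by 1.25. These were the largest rises, and none of the groups overlapped. PDK1 fell from 10.5, 8.96, 8.90 and 9.04 TPM to 4.53, 4.13, 4.81 and 3.66 TPM (log2 fold change -0.97, standard error 0.10, adjusted p = 1.05e-05), and CA12 (-0.85) and PFKL (-0.54) were the next largest falls. Of the genes followed in every comparison, SLC2A1 (-0.37), LDHA (-0.41), CA9 (-0.38) and VEGFA (-0.41) fell and PGK1 (0.11, unstable) rose. HIF1A (0.04, adjusted p = 0.789 by limma) and EPAS1 (0.16, adjusted p = 0.112) did not pass.

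The guides to CDK1, RPA3 and SERPINB5 gave the scale of changes in other knockouts, in groups of 2 libraries except SERPINB5. Members called with sgCDK1 were 7 of 35 (all genes 16.7%) in AsPC-1, 6 of 36 (all genes 5.82%) in BxPC-3, 13 of 37 (all genes 16.8%) in T3M-4 and 0 of 38 (all genes 0.0%) in CFPAC-1. With sgRpa3 they were 1 of 35 (all genes 0.654%) in AsPC-1, 0 of 36 (all genes 0.307%) and 12 of 36 (all genes 20.8%) in BxPC-3 experiments 1 and 2, 0 of 37 (all genes 0.0%) and 15 of 37 (all genes 24.6%) in T3M-4 experiments 1 and 2, and 9 of 38 (all genes 11.6%) in CFPAC-1. With sgSERPINB5 in AsPC-1 they were 0 of 35 (all genes 0.0343%). By limma at an unadjusted p under 0.05, the comparisons without a call had 0 members (sgSERPINB5), 5 and 0 (sgRpa3 in BxPC-3 and T3M-4 experiment 1) and 5 (sgCDK1 in CFPAC-1). Several of these counts rested on single libraries. With sgCDK1 they became 3 without sgCDK1 replicate 1 (5.65%) in AsPC-1, 1 without sgCDK1 replicate 1 (1.32%) and 2 without sgCDK1 replicate 2 (1.86%) in BxPC-3 and 7 without sgCDK1 replicate 1 (6.29%) and 4 without sgCDK1 replicate 2 (5.32%) in T3M-4. With sgRpa3 they became 0 without sgRpa3 replicate 1 (0.131%) and 0 without sgRpa3 replicate 2 (0.245%) in AsPC-1, 7 without sgRpa3 replicate 1 (14.2%) and 5 without sgRpa3 replicate 2 (9.26%) in T3M-4 experiment 2 and 3 without sgRpa3 replicate 1 (1.82%) and 3 without sgRpa3 replicate 2 (1.16%) in CFPAC-1. CA12 was the largest riser with sgCDK1 in AsPC-1 (1.04, adjusted p = 1.21e-05), BxPC-3 (1.02, adjusted p = 0.00105, lost without sgCDK1 replicate 1) and T3M-4 (0.83, adjusted p = 0.0023). The largest falls with sgCDK1 were ALDOC in AsPC-1 (-0.79), NDRG1 in BxPC-3 (-0.45, unstable) and ENO1 in T3M-4 (-0.44, lost without sgCDK1 replicate 2). With sgRpa3, VEGFA rose most in AsPC-1 (0.69, unstable) and CFPAC-1 (0.53, unstable), HK2 in BxPC-3 (0.79) and ALDOC in T3M-4 (0.69, lost without sgRpa3 replicate 1). LDHA in BxPC-3 (-0.60), BNIP3 in CFPAC-1 (-0.74) and LDHB in T3M-4 (-0.45) fell most with sgRpa3.

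**Figure D5:**
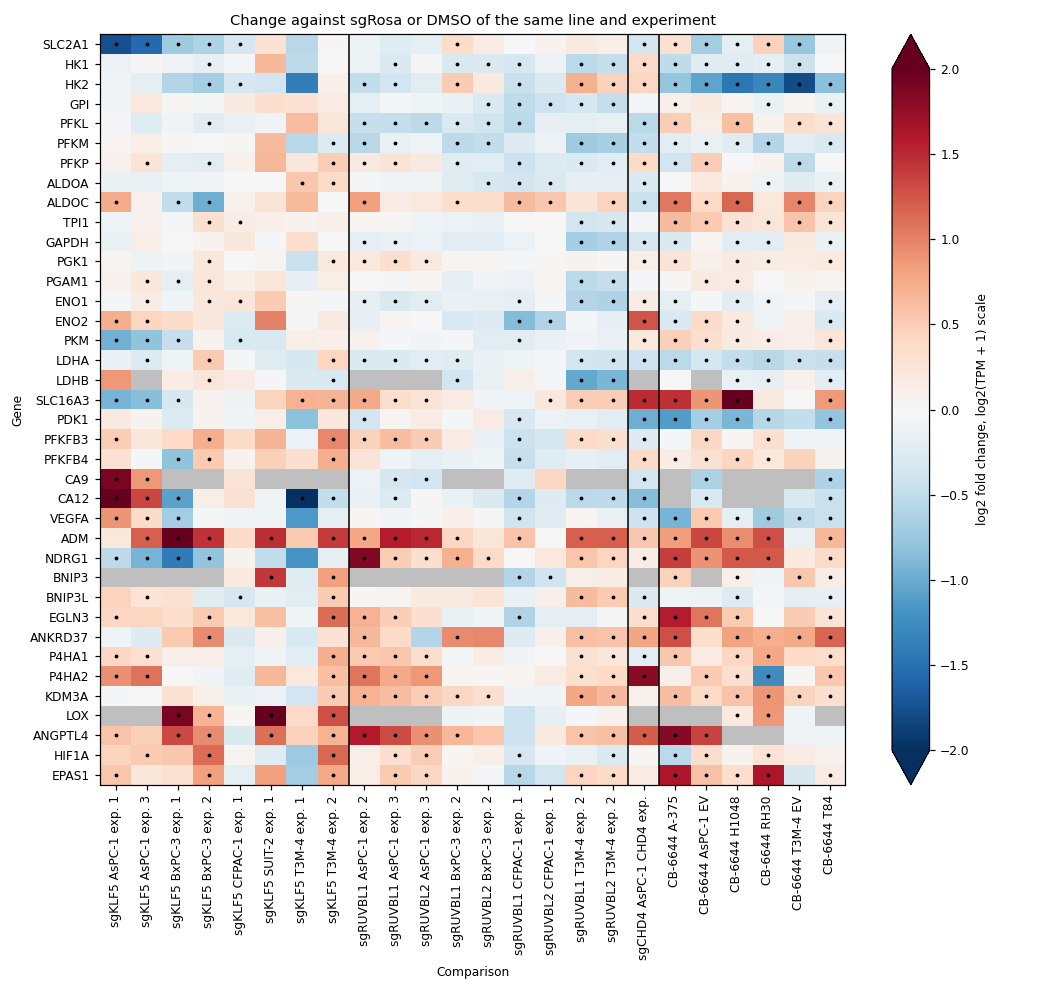
Log2 fold change on the log2(TPM + 1) scale of each of the 38 genes (rows) in each of the 24 main comparisons (columns), on a colour scale, saturated at 2 in either direction, with calls at an adjusted p under 0.05 marked by a dot and genes below the filter in grey. HK2 and LDHA are negative in all 6 CB-6644 columns, and SLC2A1 is negative in both AsPC-1 sgKLF5 columns.

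Genes around the 38 were followed as 5 further lists. Over the same comparisons, 2.94% to 23.4% of all genes rose and 1.0% to 13.6% fell with sgKLF5, 2.83% to 45.9% of all genes rose and 5.48% to 37.3% fell with sgRUVBL1 or sgRUVBL2, and 19.1% to 53.9% of all genes rose and 15.2% to 29.7% fell with CB-6644. Of 12 regulators of the HIF pathway (such as VHL, EGLN1 and ARNT), 0 to 2 rose and 0 to 1 fell of the 10 to 11 tested per sgKLF5 comparison, 1 to 7 rose and 0 to 3 fell of the 10 to 11 tested with sgRUVBL1 or sgRUVBL2 and 1 to 6 rose and 2 to 6 fell of the 10 to 12 tested with CB-6644. The largest change in each family belonged to ARNT2, a HIF beta subunit: ARNT2 in SUIT-2 (1.17, adjusted p = 0.0181), ARNT2 in T3M-4 experiment 2 sgRUVBL1 (1.2, adjusted p = 6.97e-06) and ARNT2 in A-375 (1.41, adjusted p = 3.26e-10). Of 18 other hypoxia-induced genes, 0 to 7 rose and 0 to 4 fell of the 12 to 17 tested per sgKLF5 comparison, 0 to 9 rose and 0 to 9 fell of the 12 to 17 tested with sgRUVBL1 or sgRUVBL2 and 2 to 8 rose and 4 to 7 fell of the 12 to 17 tested with CB-6644. With CB-6644 the largest change of a member of this list was that of DDIT4, an inhibitor of mTORC1 signalling, in A-375 (-2.45, adjusted p = 6.81e-12 by limma). Rises and falls occurred within the same lists.

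Of 16 other isozymes and carriers of glycolysis, 0 to 5 rose and 0 to 3 fell of the 9 to 11 tested per sgKLF5 comparison, 0 to 8 rose and 0 to 2 fell of the 9 to 11 tested with sgRUVBL1 or sgRUVBL2 and 1 to 8 rose and 1 to 3 fell of the 9 to 11 tested with CB-6644. Leading changes were the glucose carrier SLC2A3 in T3M-4 experiment 1 (-2.26, adjusted p = 0.0268), the muscle enolase ENO3 in AsPC-1 experiment 2 sgRUVBL1 (1.62, adjusted p = 4.48e-07) and the muscle phosphoglycerate mutase PGAM2 in T84 (2.69, adjusted p = 1.28e-09). In the pentose phosphate pathway, which branches from glucose 6-phosphate to make NADPH, 0 to 5 rose and 0 to 1 fell of the 7 tested of 7 listed genes per sgKLF5 comparison, 0 to 3 rose and 0 to 4 fell of the 7 tested with sgRUVBL1 or sgRUVBL2 and 1 to 3 rose and 2 to 4 fell of the 7 tested with CB-6644. With CB-6644 the largest change there was that of PGLS in RH30 (-1.06, adjusted p = 2.67e-09 by limma). Of 12 genes of pyruvate dehydrogenase and the pyruvate carrier, 0 to 5 rose and 0 to 3 fell of the 11 to 12 tested per sgKLF5 comparison, 0 to 4 rose and 0 to 6 fell of the 11 to 12 tested with sgRUVBL1 or sgRUVBL2 and 3 to 6 rose and 0 to 5 fell of the 11 to 12 tested with CB-6644, led by the kinase PDK4 in BxPC-3 experiment 1 (2.09, adjusted p = 3.08e-05), the carrier MPC1 in AsPC-1 experiment 3 sgRUVBL1 (0.90, adjusted p = 0.00142) and the phosphatase PDP1 in A-375 (-1.22, adjusted p = 1.32e-07). With sgCHD4 the leaders were HIF3A (0.85, adjusted p = 0.000289), BHLHE40 (-1.26, adjusted p = 3.75e-08), PGM1 (0.46, adjusted p = 1.45e-05), RPIA (-0.73, adjusted p = 1.65e-06) and PDP1 (1.42, adjusted p = 2.53e-07), where 5 rose and 2 fell of 11 tested, 2 rose and 5 fell of 12 tested, 2 rose and 2 fell of 10 tested, 1 rose and 5 fell of 7 tested and 2 rose and 3 fell of 11 tested in the 5 lists, in that order. In the same comparison, 23.3% of all genes tested rose and 26.7% fell.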

How the data were processed

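Poly-A selected RNA was sequenced single-end from 183 libraries of 9 cell lines. Per the study's methods, the authors pseudoaligned the reads to hg38 transcripts with kallisto, summed transcripts to genes with tximport and removed low-abundance transcripts at a limit not given in the sources used here. The deposited values are TPM in 8 tables, which sum to the same total in every library, so a gene's value also depends on the other genes of its library and no read depth is known.

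The members and lists were chosen with earlier results of these data known. Libraries were grouped by their labels, and each knockout or CB-6644 group was compared with sgRosa or DMSO of the same line and experiment. limma 3.58.1 (R 4.3.3) was fitted to log2(TPM + 1) for genes averaging 1 TPM or more across the libraries fitted, with Benjamini-Hochberg adjustment over all genes tested and a threshold of 0.05. The fit was tested on simulated data. The 3 DMSO libraries of a vector experiment, 1 per vector, served as 1 control group. Genes were named by rule: all 38 at baseline, in each main comparison the 3 largest rises and falls without overlap, genes called in 1 direction in at least 0.5 of a family's comparisons, SLC2A1, LDHA, PGK1, CA9, VEGFA, HIF1A and EPAS1 throughout, the largest rise and fall in each other comparison, and the largest change per family of each list of further genes (for 2 of the lists it is not reported here for the knockouts of KLF5, RUVBL1 and RUVBL2). One T3M-4 sgRUVBL1 sample was excluded by the authors and is not analysed here. Further calls of ALDOA, ANKRD37, CA12, GAPDH, HK2, PFKFB4, PFKP and SLC16A3 were added after their values were seen. Alternatives were a pseudocount of 0.1, no filter, median-of-ratios scaling, a replicate block, the own-vector DMSO library and leaving out each library. Promoters came from RefSeq.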

Additional observations from a re-analysis of the deposited data

Results flagged for a closer look

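Among 85 gene and group pairs of 4 to 10 libraries whose values are given, 6 held a library whose gap to its nearest neighbour was above Dixon's 95% limit, and chance alone gives about 1 in 20 such groups. CA12 in T3M-4 experiment 1 sgKLF5 replicate 2 was at 0.881 TPM, where the other libraries of the group ran from 2.38 to 2.68 TPM. LDHA in RH30 CB-6644 replicate 2 was at 738 TPM, where the other libraries of the group ran from 770.3 to 776 TPM. LDHA in RH30 DMSO replicate 2 was at 1091 TPM, where the other libraries of the group ran from 1137 to 1144 TPM. LDHB in T3M-4 experiment 2 sgRUVBL2 replicate 1 was at 1383 TPM, where the other libraries of the group ran from 1237 to 1249 TPM. PDK1 in AsPC-1 sgRosa replicate 1 was at 10.5 TPM, where the other libraries of the group ran from 8.90 to 9.04 TPM. VEGFA in A-375 DMSO replicate 1 was at 34.5 TPM, where the other libraries of the group ran from 32.9 to 33.1 TPM.

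The effect of sgKLF5 differed between the experiments of a line for 21 gene and line pairs, by the interaction test in limma, given as the later minus the earlier experiment on the log2 scale. In AsPC-1, these were ALDOC (-0.65, adjusted p = 0.0402, unstable, scale-dependent), CA9 (-1.02, adjusted p = 1.11e-05), CA12 (-1.04, adjusted p = 0.00251, lost without sgRosa replicate 2) and ADM (0.97, adjusted p = 0.00364). In T3M-4, these were CA12 (1.71, adjusted p = 0.0199, unstable), BNIP3 (1.06, adjusted p = 0.0341, unstable) and EGLN3 (1.21, adjusted p = 0.022, unstable). In BxPC-3, these were TPI1 (0.34, adjusted p = 0.033, unstable, scale-dependent), PGK1 (0.27, adjusted p = 0.0167, unstable, scale-dependent), PGAM1 (0.45, adjusted p = 0.00221), ENO1 (0.28, adjusted p = 0.0304, unstable, scale-dependent), PKM (0.54, adjusted p = 0.00195), LDHA (0.61, adjusted p = 0.00236), SLC16A3 (0.40, adjusted p = 0.00571, lost without sgRosa replicate 1, scale-dependent), PFKFB4 (1.33, adjusted p = 0.000238), CA12 (1.18, adjusted p = 0.00328), VEGFA (0.67, adjusted p = 0.00151), ADM (-1.02, adjusted p = 1.19e-05), NDRG1 (0.62, adjusted p = 0.00231), BNIP3L (-0.56, adjusted p = 0.0127, lost without sgRosa replicate 1) and LOX (-1.21, adjusted p = 0.00648). A call is marked unstable where leaving out any 1 of several libraries ends it. The experiments of a line differ in their libraries and control levels, and the part of these in the differences was not tested.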

How the results depend on the processing

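Values are TPM without read counts, so depth is unknown and what it limits cannot be given, and groups of 2 libraries limit several comparisons. Of the 566 gene and comparison values followed, 563 kept direction and side of the threshold with a pseudocount of 0.1 (3 lost the call), 539 without the filter (27 lost) and 456 after median-of-ratios scaling (61 lost, 29 gained, 20 changed sign). The values that changed sign after that scaling were CFPAC-1 sgRUVBL1 SLC2A1 0.21, PGK1 0.19, ENO1 0.043 and NDRG1 0.21, T3M-4 experiment 2 sgRUVBL1 PGK1 -0.22 and VEGFA -0.26, T3M-4 experiment 2 sgRUVBL2 PGK1 -0.20, T84 HK1 -0.16, BNIP3 -0.040 and EPAS1 -0.022, A-375 LDHB -0.22, PFKFB4 -0.060 and P4HA2 -0.11, H1048 PGK1 -0.034, PKM -0.029, BNIP3 -0.12 and HIF1A -0.15, RH30 PGK1 -0.026, PKM -0.022 and EGLN3 -0.17, and with the own-vector DMSO library as control ADM in T3M-4 EV was 0.56. Unfiltered fits test more genes, and own-vector fits use fewer libraries. The cause of the other shifts was not tested. After scaling, the members called were 1 in BxPC-3 experiment 1 sgRpa3 (reported 0), 9 in T3M-4 experiment 1 sgKLF5 (reported 3), 8 in AsPC-1 A62T (reported 5) and 9 in T3M-4 difference between experiments (reported 3). The higher and lower calls among all genes were then 51 and 1 (reported 36 and 2), 1194 and 1324 (reported 412 and 311), 649 and 1044 (reported 1318 and 243) and 995 and 574 (reported 137 and 78), in that order. With the replicate block, the members called were 13 in T3M-4 experiment 1 sgKLF5 (reported 3), 2 in SUIT-2 sgKLF5 (reported 4), 2 in AsPC-1 difference between experiments (reported 4) and 19 in T3M-4 difference between experiments (reported 3). Without the filter, the members called were 3 in CFPAC-1 sgKLF5 (reported 6), 3 in AsPC-1 A62T (reported 5) and 8 in AsPC-1 dF109 (reported 13). With own-vector DMSO, a single control library, fewer members were called in A62T cells of both lines. The shares of all genes called with the block, without the filter and with own-vector DMSO are not given here. These counts therefore cannot be read as results about the members. In no comparison with at least 3 pairs was every correlation between same-numbered libraries over 0.1. With so few pairs, this cannot decide whether the numbers pair the samples. In BxPC-3 experiment 2 sgKLF5 the correlations were 0.19, 0.027, 0.19 and 0.13, whereas other comparisons held negative values. LDHA in RH30 was lowest in replicate 2 of both arms. The main fits treat libraries as unpaired, and with the block 478 values kept their call, 9 lost it and 14 gained it. Leaving out 1 library at a time, the members called ran from 0 to 13 in T3M-4 experiment 1 sgKLF5, 3 to 6 in AsPC-1 experiment 3 sgCDK1, 0 to 1 in AsPC-1 experiment 3 sgRpa3, 1 to 6 in BxPC-3 experiment 2 sgCDK1, 7 to 13 in BxPC-3 experiment 2 sgRUVBL1, 4 to 9 in BxPC-3 experiment 2 sgRUVBL2, 1 to 15 in CFPAC-1 sgKLF5, 3 to 12 in CFPAC-1 sgRpa3, 11 to 22 in CFPAC-1 sgRUVBL1, 0 to 9 in CFPAC-1 sgRUVBL2, 4 to 15 in T3M-4 experiment 2 sgCDK1, 5 to 17 in T3M-4 experiment 2 sgRpa3, 3 to 16 in SUIT-2 sgKLF5, 1 to 9 in AsPC-1 A62T, 6 to 12 in AsPC-1 dF109, 17 to 23 in AsPC-1 A62T against EV, 9 to 20 in T3M-4 EV, 10 to 25 in T3M-4 A62T, 3 to 18 in T3M-4 dF109, 9 to 19 in T3M-4 dF109 against EV, 2 to 7 in AsPC-1 difference between experiments, 0 to 19 in T3M-4 difference between experiments, 9 to 16 in BxPC-3 difference between experiments. A lone DMSO library of a vector is assumed to vary like the other groups. Of all 659 member calls, 206 were lost without some library (29 of 100 with sgKLF5, 43 of 152 with sgRUVBL1 or sgRUVBL2, 15 of 152 with CB-6644 and 6 of 29 with sgCHD4).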
